A study of Mus musculus with 15 samples.

Results

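The effect of IL-6 given to macrophages together with IL-4 was read from 6 of the 15 RNA sequencing libraries of the series. Of these, 3 were from mouse bone marrow-derived macrophages (BMDMs) given IL-4 at 10 ng/ml plus IL-6 at 40 ng/ml (IL-4/IL-6). The other 3 were from BMDMs given IL-4 at 10 ng/ml alone (IL-4), and all were collected 24 h after the addition. These 6 libraries were chosen by their labels, and every gene with enough counts was followed, whether or not IL-4 itself induces it: 12671 of the 53465 annotated genes. All the cells had been grown from bone marrow for 7 days in M-CSF at 20 ng/ml. Strain, genotype and age are not given in the labels. The study's culture methods give mice of 8 to 12 weeks, without naming these libraries. The other 9 libraries were untreated BMDMs (control), BMDMs given IL-13 at 40 ng/ml, and BMDMs given this IL-13 dose and IL-6 at 40 ng/ml (IL-13/IL-6). No group received IL-6 alone, so every value below is that of IL-6 on top of another cytokine.

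IL-6 binds its receptor IL6RA, and the pair engages the shared signalling chain gp130 (Il6st), whose associated JAK kinases phosphorylate STAT3. STAT3 enters the nucleus, binds paired TTC and GAA half-sites and raises, among others, Socs3, which encodes an inhibitor that binds gp130 and JAK and shuts the signal down. IL-4 signals through IL4RA and STAT6, and in macrophages it induces the genes of alternative activation, such as Mrc1. IL-6 is known to raise Il4ra and so to sensitise macrophages to IL-4.

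The libraries held similar numbers of counts, 17787364 to 18479299 with IL-4 and 17755711 to 18918686 with IL-4/IL-6, but the replicates of the 2 groups were not equally close. The biological coefficient of variation, the spread between replicates beyond counting noise, was 4.54% among the IL-4 libraries and 14.7% for IL-4/IL-6. On a principal component analysis of log2 CPM (counts per 1000000 counts), the first component (75.9% of the variance) separated the groups and the second (11.7%) separated IL-4/IL-6 replicate 2 (score -30.9) from replicates 1 and 3 (7.66 and 24.6). That library differed from its group by gene length. In the shortest quartile of the tested genes its median log2 deviation from the other replicates was 0.298, and in the longest quartile it was -0.234. Replicate 3 deviated the other way, from -0.221 to 0.200, whereas replicate 1 stayed within -0.0730 and 0.0398. The IL-4 replicates stayed between -0.0400 and 0.0443. Each library was set against the others of its group, so the opposite deviations of replicates 2 and 3 are not independent of each other. The part that this length trend has in any single gene's result was not tested, and calls lost and list counts moved by more than 1.5 times when 1 library is left out are given beside the result.

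**Figure D1:**
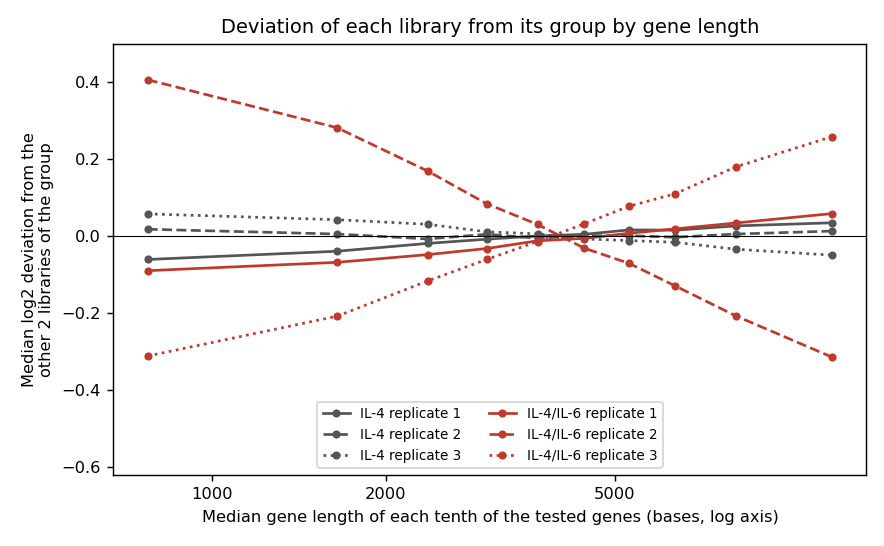
Median log2 deviation of each library from the other libraries of its group (y axis) in deciles of the tested genes ordered by gene length (x axis, bases, log axis); grey lines are IL-4 and red lines IL-4/IL-6 replicates. IL-4/IL-6 replicate 2 falls from 0.407 in the shortest decile to -0.314 in the longest and replicate 3 rises from -0.311 to 0.259, while the other 4 libraries stay close to 0.

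The cells carried the markers of macrophages in every library. Csf1r, the M-CSF receptor, was at 1854, 1833 and 1740.5 CPM with IL-4 and 1606, 1352 and 1619 CPM with IL-4/IL-6, and Adgre1, which encodes the F4/80 antigen, at 876, 900.1 and 852 CPM with IL-4 and 1277, 1139.7 and 1309.6 CPM with IL-4/IL-6. Of the 16 macrophage markers followed, 0 were at 0 counts in all 6 libraries. Among markers of other cell types, 8 of 16 lymphocyte genes had 0 counts in all 6 libraries, Cd3e and Cd8a among them, and so did 5 of 14 stromal and endothelial genes, Col1a1 and Pdgfra among them, 5 of 10 erythroid genes, 5 of 17 granulocyte genes, Ly6g and Camp among them, and 5 of 18 basophil, mast cell and eosinophil genes, Fcer1a and Mcpt8 among them. Of 13 dendritic cell genes 2 were at 0, of 15 monocyte genes 1, and of 12 megakaryocyte and platelet genes 0. The libraries are bulk RNA, so that a change in the number of cells of 1 kind and a change in RNA per cell cannot be told apart. CPM values below were normalized over the 6 libraries by the trimmed mean of M-values (TMM), and values are mean ± SD over the 3 libraries of a group (n = 3) where the libraries are not given singly. Fold changes are log2 values of IL-4/IL-6 relative to IL-4, each with its SE, a bare value in parentheses after a gene is its log2 fold change, and the median of a list is that of the log2 fold changes of its tested members. A gene was called when its adjusted p (Benjamini-Hochberg, over all tested genes) was below 0.05 in edgeR's quasi-likelihood test. Where a list is said to hold 0 genes in 1 direction of this comparison, none was found there at an unadjusted p below 0.05 or with DESeq2 or limma, apart from 1 CC chemokine at an unadjusted p.

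Co-addition of IL-6 altered the RNA of a large part of the expressed genes. It raised 1991 genes (15.7% of those tested) and lowered 2364 (18.7%). Beyond a log2 fold change of 1.5, 284 genes were higher (2.24%) and 483 lower (3.81%). The median log2 fold change was 0.58 among the raised genes and -0.82 among the lowered ones, against 0.00760 over all tested genes. Groups did not overlap, meaning that all 3 values of 1 group lay above those of the other, for 6144 genes (48.5%), and 4333 of the 4355 called genes were among these. Of the 8316 genes that were not called, 5173 had a 95% interval of the log2 fold change inside -0.58 to 0.58, so that a change of more than 1.5-fold lies outside their interval, and for the other 3143 the data allow a larger change.

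Raised genes were more frequent among abundant transcripts and lowered genes were not. Expression was taken as the mean of both groups, so the change itself moves raised genes towards higher quartiles and lowered genes towards lower ones. In the quartile of tested genes with the lowest expression 8.65% were higher and 17.7% lower, and in the quartile with the highest expression 25.1% were higher and 17.3% lower. The median log2 fold change went from -0.12 in the lowest quartile to 0.08 in the highest. Summed over all annotated genes that gained, the gain was 170751 CPM, 16.7% of the summed CPM of IL-4/IL-6. Over those that lost, the loss was 129482 CPM. The summed TMM-normalized CPM was itself 980673 with IL-4 and 1021940 with IL-4/IL-6, so gain and loss do not measure total RNA. Protein-coding genes made up 11149 of the tested genes, with 1886 raised and 2217 lowered. Of 224 lincRNA genes 21 were higher and 47 lower, with a median of -0.25, and of 191 antisense genes 14 were higher and 24 lower. Of all tested genes, 15.7% were higher and 18.7% lower, and no comparison was made with other genes of like level. Whether the counting used strand is not given in the sources used here, so reads of an antisense gene and of its partner may not have been separated.

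**Figure D2:**
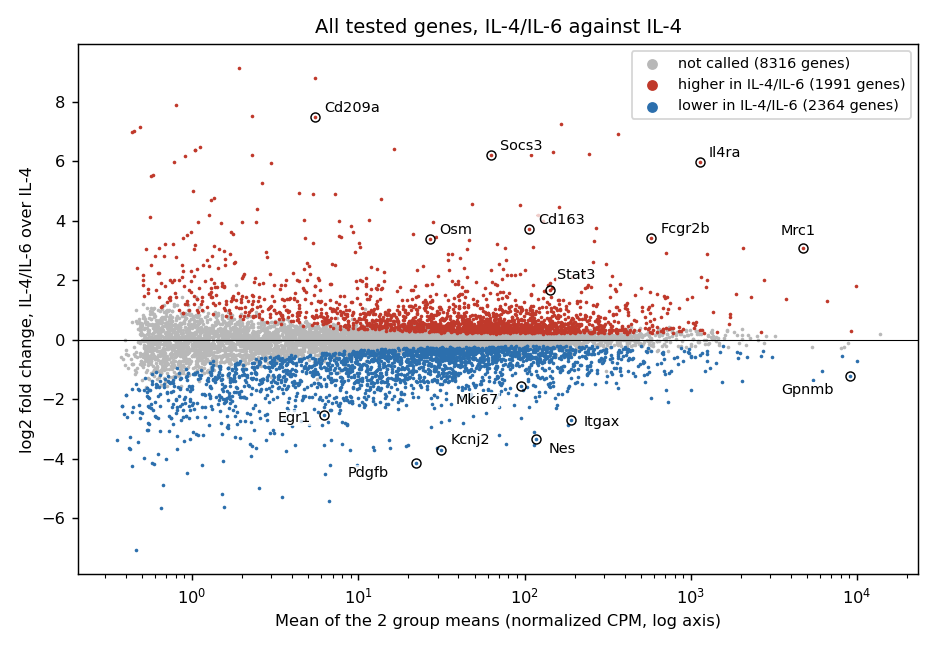
Log2 fold change of IL-4/IL-6 over IL-4 (y axis) against the mean of the 2 group means (x axis, normalized CPM, log axis) for all tested genes, with called genes in red (higher) and blue (lower) and 15 genes named in the text ringed. Socs3 (6.21) and Il4ra (5.98) stand far above 0, and Kcnj2 (-3.71) and Pdgfb (-4.14) far below.

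IL-6 signalling genes were the first group examined, ordered from the receptor inwards. Il6ra was at 38.9, 40.6 and 39.4 CPM with IL-4 and 45.8, 35 and 41.4 CPM with IL-4/IL-6, and was not called (log2 fold change 0.04 ± 0.11 (SE), adjusted p = 0.80). Il6st, the gp130 chain, was at 234, 223 and 216 CPM with IL-4 and 508, 363 and 579 CPM with IL-4/IL-6. All 3 IL-4/IL-6 values lay above the IL-4 values, and the gene was higher (log2 fold change 1.11 ± 0.15 (SE), adjusted p = 0.00043), with the lowest of the treated values in replicate 2. Jak2, a kinase that docks on gp130, was at 62.7, 66.0 and 64.8 CPM with IL-4 and 199, 184 and 218 CPM with IL-4/IL-6 (log2 fold change 1.63 ± 0.08 (SE), adjusted p = 1.3e-06). Stat3 was at 68.5, 65.0 and 69.4 CPM with IL-4 and 231, 184 and 236 CPM with IL-4/IL-6 (log2 fold change 1.68 ± 0.10 (SE), adjusted p = 3.8e-06). Neither Jak2 nor Stat3 overlapped between the groups, and the lowest treated value of both was that of replicate 2. Jak1, by contrast, was not called (log2 fold change 0.20 ± 0.08), nor were Tyk2 (-0.30 ± 0.13), Stat5b (-0.01 ± 0.11) and Ptpn11 (0.04 ± 0.11), the phosphatase that couples gp130 to the ERK pathway. Ptpn6, which encodes the phosphatase SHP-1, fell from 161 ± 4.65 to 93.8 ± 8.50 CPM (log2 fold change -0.78 ± 0.08 (SE), adjusted p = 0.00010).

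Cytokine and receptor genes that share this pathway changed as well. Osm, which encodes oncostatin M, another ligand of gp130, was at 4.88, 4.45 and 4.76 CPM with IL-4 and 48.0, 53.4 and 46.2 CPM with IL-4/IL-6 (log2 fold change 3.39 ± 0.11 (SE), adjusted p = 1.1e-07). Lifr, the LIF receptor chain that pairs with gp130, rose from 5.57 ± 0.594 to 18.4 ± 2.39 CPM. Il10, an anti-inflammatory cytokine that also acts through STAT3, was at 1.38, 1.32 and 1.24 CPM with IL-4 and 14.4, 16.9 and 11.7 CPM with IL-4/IL-6 (log2 fold change 3.44 ± 0.19 (SE), adjusted p = 2.1e-06), and its receptor chains moved apart, with Il10ra lower (-1.0 ± 0.09) and Il10rb slightly higher (0.25 ± 0.08). Over the 18 tested genes of the IL-6 receptor and JAK/STAT list, 8 were higher and 4 lower, with a median log2 fold change of 0.22. These counts, and those of the lists below, stand beside 15.7% and 18.7% of all tested genes. IL-6 receptor and JAK/STAT genes had a median log2 fold change of 0.15 without IL-4/IL-6 replicate 3. Il10rb lost its call without IL-4 replicate 1, 2 or 3 or IL-4/IL-6 replicate 1.

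Among the SOCS genes, the feedback inhibitors of JAK/STAT signalling, Socs3 stood alone in size. It was at 1.27, 1.54 and 2.22 CPM with IL-4 and 138, 115 and 119 CPM with IL-4/IL-6, with no overlap (log2 fold change 6.21 ± 0.17 (SE), adjusted p = 5.3e-08). Cish rose from 4.66 ± 0.349 to 7.71 ± 1.53 CPM and Socs2 from 7.69 ± 0.699 to 12.6 ± 1.33 CPM, with log2 fold changes of 0.73 and 0.71, and Socs5 by 0.28. Socs1, the inhibitor that IL-4 and interferons induce, was at 39.7, 38.2 and 31.3 CPM with IL-4 and 42.3, 43.9 and 55.9 CPM with IL-4/IL-6 and was not called (log2 fold change 0.38 ± 0.13 (SE), adjusted p = 0.053), and Socs4, Socs6 and Socs7 were not called either. In all, 4 of 8 members were higher and 0 lower (median 0.33). In the SOCS list the number of higher genes was 2 without IL-4 replicate 3. Cish lost its call without IL-4 replicate 3 or IL-4/IL-6 replicate 1, and Socs5 lost its call without IL-4 replicate 1, 2 or 3.

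**Figure D3:**
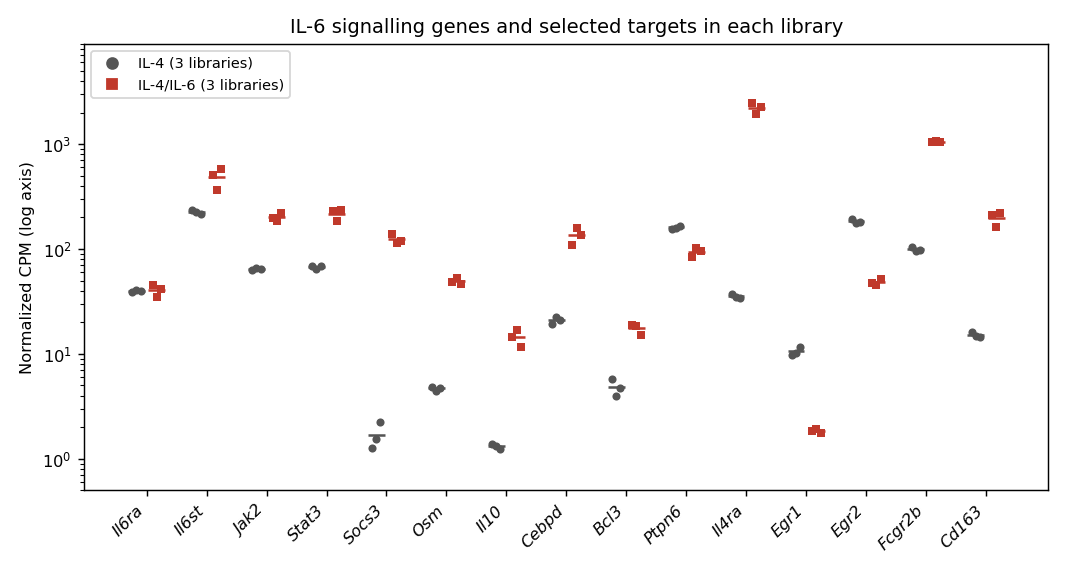
Normalized CPM (y axis, log axis) of 15 genes in each of the 6 libraries; grey circles are the 3 IL-4 libraries, red squares the 3 IL-4/IL-6 libraries, and lines the group means. Socs3 and Il4ra have the widest gaps between the groups, Il6ra overlaps, and Ptpn6, Egr1 and Egr2 lie lower with IL-4/IL-6.

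Genes that STAT3 is known to raise in macrophages were followed as a list of 24 tested members, of which 13 were higher, 10 of them beyond a log2 fold change of 1.5, and 3 lower (median 0.51). These counts too stand beside 15.7% and 18.7% over all tested genes. Besides Socs3, Il4ra and Il10, the raised members included the transcription factor genes Cebpd (20.9 ± 1.57 to 134 ± 23.6 CPM, log2 fold change 2.69 ± 0.14 (SE), adjusted p = 1.3e-06), Batf (3.71 ± 0.232 to 20.2 ± 4.24 CPM, log2 fold change 2.45) and Bcl3 (4.82 ± 0.869 to 17.5 ± 1.98 CPM, 1.86). Timp1, an inhibitor of matrix metalloproteinases, was at 9.77, 8.07 and 7.24 CPM with IL-4 and 59.8, 76.7 and 47.0 CPM with IL-4/IL-6 (log2 fold change 2.87 ± 0.19 (SE), adjusted p = 6.0e-06). Il21r, which encodes the IL-21 receptor, rose by 2.12 on the log2 scale, Sbno2, a corepressor downstream of IL-10, by 1.74, the survival kinase gene Pim1 by 1.65, and Mcl1, which blocks apoptosis, by 0.40. Junb, Vegfa and Tnip3 fell, with log2 fold changes of -0.25 for Junb, -1.58 for Vegfa and -1.63 for Tnip3. Vegfa was at 68.1, 64.3 and 56.4 CPM with IL-4 and 13.6, 22.5 and 27 CPM with IL-4/IL-6, without overlap. Myc (log2 fold change 0.02 ± 0.07), Hif1a (0.20 ± 0.08), Nfil3 (0.11 ± 0.09), Saa3 (0.20 ± 0.21) and Bcl2l1 (0.13 ± 0.08) were not called. Junb lost its call without IL-4 replicate 1, 2 or 3 or IL-4/IL-6 replicate 1 or 3.

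The bases upstream of the start sites of these genes were searched for the STAT half-site pair, spelled TTCNNNGAA, a palindrome that reads the same on both strands. Within 250 bases before a RefSeq start (GRCm38.p6), 3 of the 20 list members matched by symbol held it, namely Socs3, Fcgr1 and Sbno2. Their sequences are shown because all 3 genes rose; capitals mark the motif and each sequence runs 5′ to 3′ towards the start site, which lies just after its last base.
Socs3, chr11:117969367-117969616, minus strand: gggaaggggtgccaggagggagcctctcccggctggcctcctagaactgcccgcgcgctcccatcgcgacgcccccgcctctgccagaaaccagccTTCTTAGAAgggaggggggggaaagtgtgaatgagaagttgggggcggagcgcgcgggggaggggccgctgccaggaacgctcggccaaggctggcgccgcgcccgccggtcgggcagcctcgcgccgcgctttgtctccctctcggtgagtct
Sbno2, chr10:80101188-80101437, minus strand: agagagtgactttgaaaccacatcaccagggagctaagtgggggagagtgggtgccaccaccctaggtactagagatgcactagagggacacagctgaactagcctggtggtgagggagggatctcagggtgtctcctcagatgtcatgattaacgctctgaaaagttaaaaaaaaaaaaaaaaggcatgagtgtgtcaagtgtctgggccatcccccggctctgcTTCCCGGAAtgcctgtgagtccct
Sbno2, chr10:80102703-80102952, minus strand: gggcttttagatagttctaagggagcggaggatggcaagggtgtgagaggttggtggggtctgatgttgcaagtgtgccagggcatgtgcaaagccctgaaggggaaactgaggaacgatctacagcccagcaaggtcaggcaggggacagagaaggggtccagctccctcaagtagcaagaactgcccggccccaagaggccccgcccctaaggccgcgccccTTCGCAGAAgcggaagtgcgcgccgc
Fcgr1, chr3:96293970-96294219, minus strand: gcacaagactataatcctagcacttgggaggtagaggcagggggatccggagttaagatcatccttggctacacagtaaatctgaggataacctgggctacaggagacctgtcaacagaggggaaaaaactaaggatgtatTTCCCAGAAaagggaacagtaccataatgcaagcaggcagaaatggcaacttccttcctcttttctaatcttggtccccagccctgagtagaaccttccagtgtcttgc

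In Socs3 the motif begins 154 bases before the start, in Fcgr1 109, and at the annotated starts of Sbno2 24 and 26. A match is a run of letters, not a shown site. Of 32851 mouse starts of the same length, 7.02% held it, as did 6.99% of 9281 tested genes with a matched start, 7.51% of 1557 raised genes, 7.06% of 1814 lowered genes and 6.84% of 5910 genes that were not called. Among genes raised beyond 1.5 the share was 8.61% (18 of 209), and among those lowered beyond it 5.73% (20 of 349). With the stricter spelling TTCCNGGAA the shares were 1.24% of tested, 1.54% of raised and 1.27% of lowered genes.

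IL-6 also feeds the ERK pathway through SHP-2, whose readouts are immediate early genes and the phosphatases that end the signal. At 24 h these did not move together. Dusp6, which dephosphorylates ERK, was at 56.5, 56.9 and 61.7 CPM with IL-4 and 138, 145 and 140.0 CPM with IL-4/IL-6 and rose (log2 fold change 1.27 ± 0.07 (SE), adjusted p = 2.4e-06). Ier3, an early gene of stressed cells, rose from 30 ± 2.73 to 135 ± 23.5 CPM (log2 fold change 2.17 ± 0.13 (SE), adjusted p = 3.4e-06). Spred1 and Spred3, inhibitors of RAS signalling, rose by 0.44 and 0.90 on the log2 scale. The other 9 called members fell. Egr2, an IL-4-induced early gene, was at 192, 177 and 183 CPM with IL-4 and 47.4, 45.5 and 51.2 CPM with IL-4/IL-6 (log2 fold change -1.94 ± 0.08 (SE), adjusted p = 3.7e-07). Egr1 was at 9.82, 10.3 and 11.7 CPM with IL-4 and 1.86, 1.91 and 1.74 CPM with IL-4/IL-6 (log2 fold change -2.53 ± 0.15 (SE), adjusted p = 3.3e-06). Fos (log2 fold change -0.84), Fosl1 (-1.90), Ier2 (-0.79), Dusp1 (-1.13), Dusp2 (-1.32), Dusp4 (-0.72) and Dusp5 (-1.90) were lower as well. The median over the 19 tested members was -0.72.

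The IL-4 pathway was itself altered. Il4ra, the IL-4 receptor alpha chain, was at 37.2, 35.2 and 33.7 CPM with IL-4 and 2462, 1949 and 2281 CPM with IL-4/IL-6 (log2 fold change 5.98 ± 0.12 (SE), adjusted p = 1.2e-08). This was the largest rise in the list of 14 genes and within the largest 20 rises of all genes that reached 10 CPM. Jak3, the kinase of the common gamma chain, rose from 21 ± 1.82 to 59.6 ± 6.63 CPM (log2 fold change 1.5 ± 0.11 (SE), adjusted p = 1.0e-05). The gamma chain gene Il2rg fell slightly (18.3 ± 1.64 to 13.5 ± 2.44 CPM, log2 fold change -0.44 ± 0.14 (SE), adjusted p = 0.041), and so did Stat6 (271, 267 and 248 CPM with IL-4 and 199, 179 and 214 CPM with IL-4/IL-6, log2 fold change -0.41 ± 0.08 (SE), adjusted p = 0.0050), without overlap of the libraries. Pparg, a nuclear receptor that cooperates with STAT6, was at 81.3, 74 and 83.2 CPM with IL-4 and 30.2, 32.4 and 28.3 CPM with IL-4/IL-6 (log2 fold change -1.39 ± 0.09 (SE), adjusted p = 4.2e-06). Irf4, a transcription factor of alternative activation, was at 35.7, 37.2 and 37.8 CPM with IL-4 and 2.90, 3.36 and 3.15 CPM with IL-4/IL-6 (log2 fold change -3.55 ± 0.11 (SE), adjusted p = 9.7e-08). Klf4 rose by 0.26 on the log2 scale, and Il13ra1 (log2 fold change 0.25 ± 0.21) and the demethylase gene Kdm6b (0.18 ± 0.19) were not called. Higher and lower genes were equal in number, 4 and 4. In the IL-4 receptor list the number of higher genes was 2 without IL-4 replicate 3 or IL-4/IL-6 replicate 1. Il2rg and Klf4 lost their calls without IL-4 replicate 1, 2 or 3 or IL-4/IL-6 replicate 1 or 3.

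Genes by which alternative activation is recognised split into raised and lowered members: 11 of 21 were higher and 7 lower, and all 21 had libraries that did not overlap between the groups, beside 48.5% of all tested genes. On the raised side, next to Mrc1 (log2 fold change 3.09), stood Pdcd1lg2, which encodes the checkpoint ligand PD-L2 (4.86 ± 0.613 to 23.8 ± 1.02 CPM, log2 fold change 2.29 ± 0.12 (SE), adjusted p = 1.7e-06), fibronectin (Fn1, 497 ± 53.1 to 2010.3 ± 576 CPM, log2 fold change 2.01 ± 0.20 (SE), adjusted p = 5.6e-05), the transferrin receptor Tfrc (279.8 ± 11.6 to 860.5 ± 64.4 CPM, 1.62), Chil3 (1.45) and E-cadherin (Cdh1, 1.02). On the lowered side stood the lectin gene Mgl2 (371 ± 24.7 to 171 ± 24.6 CPM, log2 fold change -1.12 ± 0.11 (SE), adjusted p = 5.9e-05), Clec7a, which encodes the beta-glucan receptor dectin-1 (-0.64), the scavenger receptor gene Cd36 (-1.38), Retnla (-0.91), Flt1 (-1.47) and Egr2 (-1.94). The list's median, 0.51, moved between 0.35 and 0.64 when single IL-4/IL-6 libraries were left out.

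Polyamine synthesis starts from ornithine, which macrophages make from arginine, and its genes were followed separately. Odc1, ornithine decarboxylase, the first enzyme of polyamine synthesis, was at 122, 124 and 125 CPM with IL-4 and 295, 312 and 259 CPM with IL-4/IL-6 (log2 fold change 1.23 ± 0.08 (SE), adjusted p = 7.0e-06). Srm, spermidine synthase, rose from 87.2 ± 2.03 to 122 ± 8.81 CPM (log2 fold change 0.49). Sms, spermine synthase, fell from 120.2 ± 8.30 to 64.4 ± 4.90 CPM (log2 fold change -0.90 ± 0.09 (SE), adjusted p = 5.5e-05), and Smox, which oxidises spermine, was lower too (-0.64), whereas Paox rose (0.66). The arginine transporter gene Slc7a2 was at 518, 483 and 478 CPM with IL-4 and 787, 763 and 959 CPM with IL-4/IL-6 (log2 fold change 0.76 ± 0.10 (SE), adjusted p = 0.00031). Ass1, which remakes arginine from citrulline, rose from 3.33 ± 0.330 to 8.14 ± 0.693 CPM. Oat, which takes ornithine towards proline, rose slightly (log2 fold change 0.25). Among 21 tested genes of arginine and polyamine metabolism 9 were higher and 2 lower (median 0.17). In the arginine and polyamine list the number of lower genes was 4 without IL-4/IL-6 replicate 2. Arginine and polyamine genes had a median log2 fold change of 0.25 without IL-4 replicate 1. Oat lost its call without IL-4 replicate 1, 2 or 3 or IL-4/IL-6 replicate 1.

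Chemokine genes of the CC family, most of which recruit monocytes, were raised or not called. Of 14 tested, 8 were higher and 0 lower (median 0.80). Ccl8 was at 6.85, 3.62 and 7.35 CPM with IL-4 and 678, 935 and 552 CPM with IL-4/IL-6, and Ccl12 at 3.34, 2.42 and 3.03 CPM with IL-4 and 217, 257 and 173 CPM with IL-4/IL-6. Ccl7 and Ccl2 were already abundant with IL-4 and rose from 435 ± 24 to 3661 ± 721 CPM and from 297 ± 8.10 to 2201 ± 349 CPM. Ccl24, an eosinophil attractant, rose from 12.4 ± 0.909 to 227 ± 50.9 CPM. Ccl4 was at 42.5, 47.5 and 47.6 CPM with IL-4 and 88.3, 117 and 75.7 CPM with IL-4/IL-6 (log2 fold change 1.03 ± 0.15 (SE), adjusted p = 0.00061) and Ccl9 rose by 0.36 on the log2 scale. Ccl1 had 0 counts in all IL-4 libraries and 0.820, 1.29 and 0.787 CPM with IL-4/IL-6, at least 5.96-fold higher against a floor of 3 counts per library. Ccl3 (log2 fold change -0.06 ± 0.08), Ccl5 (0.19 ± 0.58) and Ccl6 (0.08 ± 0.09) were not called, and Ccl22, an IL-4-induced chemokine, was at 1.33, 0.933 and 1.73 CPM with IL-4 and 0.547, 0.897 and 0.281 CPM with IL-4/IL-6, without overlap and not called (adjusted p = 0.058). Several of these genes are close copies of each other and reads may be shared between them. In the CC chemokine list the number of lower genes was 1 without IL-4/IL-6 replicate 2.

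Other chemokines and the receptors gave a mixed picture. Pf4 rose from 68.1 ± 2.56 to 226 ± 64.4 CPM (log2 fold change 1.73 ± 0.18 (SE), adjusted p = 7.8e-05). Cxcl14 fell from 52.6 ± 1.58 to 15.1 ± 1.82 CPM (log2 fold change -1.80 ± 0.10 (SE), adjusted p = 2.4e-06), and Cxcl16 was lower (-0.53). Ccr1, a receptor for Ccl3 and related ligands, was at 101, 92.3 and 99.4 CPM with IL-4 and 242, 259 and 230.2 CPM with IL-4/IL-6 (log2 fold change 1.32 ± 0.08 (SE), adjusted p = 2.7e-06). Ccr2, through which monocytes answer Ccl2, was at 15.7, 14.5 and 13.7 CPM with IL-4 and 4.05, 2.41 and 4.16 CPM with IL-4/IL-6 (log2 fold change -2.05 ± 0.19 (SE), adjusted p = 4.1e-05). Cx3cr1, the fractalkine receptor, was at 4.09, 6.04 and 5.84 CPM with IL-4 and 0.875, 0.336 and 0.562 CPM with IL-4/IL-6 (log2 fold change -3.15 ± 0.32 (SE), adjusted p = 6.6e-05). Ccl2 and its receptor gene thus changed in opposite directions. Ccr3 and Cxcr4 rose by 0.49 and 0.46 on the log2 scale, so that of 9 receptor genes 4 were higher and 2 lower (median 0.04), and of 6 other chemokines 1 and 2. In the CXC, XC and CX3C list the number of higher genes was 2 without IL-4 replicate 1, and the number of lower genes was 1 without IL-4 replicate 3. Chemokine receptor genes had a median log2 fold change of 0.0078 without IL-4/IL-6 replicate 1 and 0.41 without IL-4 replicate 1. Cxcl16 lost its call without IL-4 replicate 3.

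Inflammatory genes showed no common direction. In the list of inflammatory cytokines and NF-kB feedback 4 of 17 were higher and 5 lower (median -0.08), beside 15.7% and 18.7% of all tested genes. Tnf fell from 15 ± 2.67 to 9.21 ± 1.74 CPM (log2 fold change -0.70 ± 0.18 (SE), adjusted p = 0.014), Nlrp3, the sensor of an inflammasome, from 17.8 ± 1.5 to 5.85 ± 1.42 CPM (log2 fold change -1.60 ± 0.17 (SE), adjusted p = 9.5e-05), and Rel from 48.9 ± 0.0724 to 26.3 ± 4.22 CPM, whereas Il1rn, the IL-1 receptor antagonist, rose from 7.67 ± 1.27 to 10.8 ± 0.148 CPM and Tnfaip3, which encodes the NF-kB inhibitor A20, from 59.0 ± 0.916 to 80.3 ± 7.96 CPM. In the IL-1 receptor family 6 of 12 were higher and 4 lower (median -0.02). Il1r1 was at 4.78, 5.65 and 4.16 CPM with IL-4 and 54.6, 47.1 and 59.1 CPM with IL-4/IL-6 (log2 fold change 3.46 ± 0.14 (SE), adjusted p = 3.7e-07). Its partner Il1rap rose from 19.8 ± 0.251 to 49.7 ± 5.78 CPM and the adaptor Myd88 from 50.5 ± 2.07 to 92.7 ± 3.08 CPM. The IL-33 receptor gene Il1rl1 was at 53.2, 53.8 and 57.8 CPM with IL-4 and 2.79, 5.10 and 5.34 CPM with IL-4/IL-6 (log2 fold change -3.64 ± 0.19 (SE), adjusted p = 1.4e-06). The IL-18 receptor chain gene Il18rap was at 14.8, 15.1 and 15 CPM with IL-4 and 1.31, 2.02 and 2.76 CPM with IL-4/IL-6, while Il18bp, which neutralises IL-18, rose from 4.36 ± 0.284 to 12.1 ± 1.06 CPM. Of the Toll-like receptors and their partners, Tlr4 rose (106 ± 3.82 to 186 ± 25.4 CPM, log2 fold change 0.80 ± 0.10 (SE), adjusted p = 0.00030). Cd14, its co-receptor, fell (101 ± 2.79 to 44.8 ± 3.89 CPM, log2 fold change -1.17 ± 0.08 (SE), adjusted p = 9.6e-06), as did Tlr13 (-1.56), Tlr2 (-1.38) and Unc93b1, which brings endosomal Toll-like receptors to their place (-0.88). Of 12 genes in that list 2 were higher and 4 lower. In the inflammatory list the number of higher genes was 2 without IL-4 replicate 1, and the number of lower genes was 3 without IL-4 replicate 2 or 3 or IL-4/IL-6 replicate 1. Inflammatory genes had a median log2 fold change of -0.17 without IL-4/IL-6 replicate 3 and -0.015 without IL-4/IL-6 replicate 1. IL-1 receptor genes had a median log2 fold change of -0.081 without IL-4/IL-6 replicate 3 and 0.029 without IL-4/IL-6 replicate 2. In the Toll-like receptor list the number of higher genes was 1 without IL-4 replicate 1 or 2 and 4 without IL-4/IL-6 replicate 2. Il1rn lost its call without IL-4 replicate 1 or 2 or IL-4/IL-6 replicate 1, and Tnf lost its call without IL-4 replicate 2 or 3 or IL-4/IL-6 replicate 1.

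Interferon-stimulated genes, the antiviral programme that interferons switch on, were lower for 12 of 30 members and higher for 3 (median -0.43). Oas3 was at 58, 51.1 and 46.6 CPM with IL-4 and 18.1, 18.6 and 26.5 CPM with IL-4/IL-6 (log2 fold change -1.30 ± 0.15 (SE), adjusted p = 0.00019). Oasl2 was at 87.6, 75.5 and 72.0 CPM with IL-4 and 28.5, 33.3 and 37.3 CPM with IL-4/IL-6, and Irf7 at 32.7, 26.5 and 27 CPM with IL-4 and 16.1, 17.2 and 18.3 CPM with IL-4/IL-6 (log2 fold change -0.74 ± 0.11 (SE), adjusted p = 0.00079). None of the 3 overlapped between the groups. Isg15 fell by 0.67, Mx1 by 1.10 and Ifi44 by 1.91 on the log2 scale. Bst2 (244 ± 10.5 to 337 ± 81.6 CPM), Usp18 (19.2 ± 2.06 to 26.7 ± 4.45 CPM) and Zbp1 (10.6 ± 0.541 to 17 ± 2.76 CPM) rose. In the interferon-stimulated list the number of higher genes was 1 without IL-4 replicate 2 or 3, and the number of lower genes was 19 without IL-4/IL-6 replicate 3. Bst2 lost its call without IL-4 replicate 1, 2 or 3 or IL-4/IL-6 replicate 1, and Mx1 lost its call without IL-4 replicate 1 or 3 or IL-4/IL-6 replicate 1, and Usp18 lost its call without IL-4 replicate 2 or 3.

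Antigen presentation genes of class II were lowered without exception, those of class I in part. All 8 tested genes of MHC class II presentation were lower (median -1.13), beside 18.7% of all tested genes. The invariant chain gene Cd74 was at 240.0, 248 and 253 CPM with IL-4 and 121, 127 and 99.0 CPM with IL-4/IL-6 (log2 fold change -1.09 ± 0.10 (SE), adjusted p = 3.6e-05). H2-Ab1 was at 45.7, 41.9 and 42.2 CPM with IL-4 and 23.4, 26.5 and 16.4 CPM with IL-4/IL-6 (log2 fold change -0.97 ± 0.16 (SE), adjusted p = 0.0012). Ciita, the regulator of the class II genes, was at 2.50, 3.02 and 3.19 CPM with IL-4 and 0.328, 0.392 and 0.450 CPM with IL-4/IL-6 (log2 fold change -2.87 ± 0.28 (SE), adjusted p = 5.4e-05). The IL-4/IL-6 libraries lay below all IL-4 libraries in the 3 genes, with replicate 2 the highest of them for Cd74. For class I, 7 of 15 were lower and 1, the peptidase gene Erap1 (log2 fold change 0.51), higher, and 7 were not called. H2-K1 fell from 1277 ± 22 to 855 ± 93.5 CPM (log2 fold change -0.58 ± 0.09 (SE), adjusted p = 0.00083), B2m from 2285 ± 112 to 1676 ± 320.0 CPM, Tap1 from 72.3 ± 2.92 to 46.2 ± 3.10 CPM and the immunoproteasome gene Psmb9 from 45.4 ± 2.92 to 27.1 ± 2.77 CPM. All 8 class II genes were lower in each fit that left out 1 library. In the class I list the number of lower genes was 4 without IL-4 replicate 1 or 3 or IL-4/IL-6 replicate 1. B2m lost its call without IL-4 replicate 1 or 3 or IL-4/IL-6 replicate 1.

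Ligands of T cell checkpoints and costimulation changed in both directions. Cd274, which encodes PD-L1, was at 36.7, 33.8 and 34.7 CPM with IL-4 and 105, 98.9 and 119 CPM with IL-4/IL-6 (log2 fold change 1.62 ± 0.09 (SE), adjusted p = 2.2e-06). Pdcd1lg2 was at 4.51, 4.5 and 5.57 CPM with IL-4 and 22.7, 24.7 and 24.1 CPM with IL-4/IL-6. Pvr, the poliovirus receptor that binds TIGIT, rose from 21 ± 0.400 to 58.1 ± 0.981 CPM (log2 fold change 1.47 ± 0.08 (SE), adjusted p = 1.4e-06) and Tnfsf14, which encodes the cytokine LIGHT, from 1.01 ± 0.206 to 9.68 ± 0.574 CPM. Other checkpoint genes fell: Vsir, which encodes VISTA, from 199 ± 8.38 to 85.3 ± 3.49 CPM (log2 fold change -1.22 ± 0.07 (SE), adjusted p = 2.9e-06), Havcr2, which encodes TIM-3, from 31.9 ± 1.03 to 7.02 ± 0.369 CPM (log2 fold change -2.19 ± 0.10 (SE), adjusted p = 6.2e-07) and Cd276, which encodes B7-H3, from 3.98 ± 0.269 to 0.574 ± 0.207 CPM. Cd80 (log2 fold change 0.22 ± 0.16), Cd86 (0.30 ± 0.26) and Cd40 (0.30 ± 0.13), the classic costimulators, were not called. Of 14 tested genes 5 were higher and 3 lower.

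Fc receptors, which bind the constant part of antibodies, were raised in 6 of 8 genes, and 0 were lower (median 1.15). Fcgr2b, the inhibitory receptor for IgG, was at 104, 95.9 and 97.5 CPM with IL-4 and 1057, 1063 and 1049 CPM with IL-4/IL-6 (log2 fold change 3.41 ± 0.07 (SE), adjusted p = 1.2e-08). The activating receptor genes rose less, Fcgr1 from 99.9 ± 1.25 to 209 ± 18.7 CPM (log2 fold change 1.06 ± 0.08 (SE), adjusted p = 1.4e-05), Fcgr3 from 448 ± 6.82 to 1054 ± 59.0 CPM (log2 fold change 1.23 ± 0.07 (SE), adjusted p = 2.5e-06) and Fcgr4 from 12.1 ± 0.927 to 33.5 ± 2.40 CPM (log2 fold change 1.47 ± 0.10 (SE), adjusted p = 7.5e-06). Fcgrt, the neonatal Fc receptor that recycles IgG, was at 15.9, 20.5 and 20.8 CPM with IL-4 and 286, 368 and 263 CPM with IL-4/IL-6 (log2 fold change 4.0 ± 0.16 (SE), adjusted p = 3.6e-07). Their shared signalling chain Fcer1g was at 594, 585 and 591 CPM with IL-4 and 496, 653 and 457 CPM with IL-4/IL-6 and was not called (log2 fold change -0.14 ± 0.12 (SE), adjusted p = 0.42). In the Fc receptor list the number of lower genes was 1 without IL-4/IL-6 replicate 2.

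Sugar-binding and scavenger receptors changed in both directions and by large steps. Of 17 C-type lectin genes 5 were higher and 8 lower (median -0.50). The Cd209 genes, mouse relatives of DC-SIGN, were close to undetected with IL-4: Cd209a was at 0, 0 and 0.162 CPM with IL-4 and 10.6, 9.98 and 12.2 CPM with IL-4/IL-6, Cd209e at 0, 0.0549 and 0 CPM with IL-4 and 11.2, 12.8 and 8.94 CPM with IL-4/IL-6 and Cd209d at 0.0531, 0 and 0 CPM with IL-4 and 2.46, 2.24 and 1.46 CPM with IL-4/IL-6. These genes are near copies in 1 cluster, and reads may have been split between them. Clec12a, an inhibitory receptor for uric acid crystals, was at 326, 304 and 329 CPM with IL-4 and 39.4, 50.7 and 40.1 CPM with IL-4/IL-6 (log2 fold change -2.88 ± 0.11 (SE), adjusted p = 2.9e-07). Clec4a2, another inhibitory lectin, fell from 110.3 ± 1.91 to 33.6 ± 6.09 CPM (log2 fold change -1.71 ± 0.12 (SE), adjusted p = 7.8e-06). Clec4b1 was at 3.03, 2.36 and 3.84 CPM with IL-4 and 0.0547, 0.112 and 0 CPM with IL-4/IL-6. The Mincle partner gene Clec4d (log2 fold change -1.25) and Clec5a (-1.23) fell too. C-type lectin genes had a median log2 fold change of -0.27 without IL-4 replicate 3.

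Cd163, the haemoglobin scavenger receptor, was at 16, 14.8 and 14.4 CPM with IL-4 and 213, 162 and 220.0 CPM with IL-4/IL-6 (log2 fold change 3.72 ± 0.13 (SE), adjusted p = 2.2e-07). Stab1 rose from 367 ± 25.5 to 1015 ± 228 CPM (log2 fold change 1.47 ± 0.15 (SE), adjusted p = 8.6e-05). In the machinery that takes up apoptotic cells, the bridging ligand Gas6 was at 169.9, 188 and 171 CPM with IL-4 and 466, 457 and 507 CPM with IL-4/IL-6 (log2 fold change 1.44 ± 0.08 (SE), adjusted p = 1.9e-06). Its receptor Axl was at 50.8, 45.6 and 47.7 CPM with IL-4 and 5.52, 6.06 and 7.42 CPM with IL-4/IL-6 (log2 fold change -2.92 ± 0.12 (SE), adjusted p = 4.2e-07). The related Mertk rose from 8.2 ± 1.10 to 12.3 ± 2.73 CPM, with overlap of the libraries (adjusted p = 0.038). Mfge8, another bridging protein, fell from 224 ± 8.68 to 122 ± 5.89 CPM, and Lrp1, an endocytic receptor, from 1719.8 ± 174 to 882 ± 252 CPM. Over 17 scavenger and apoptotic cell receptor genes 6 were higher and 8 lower (median -0.18). Mertk lost its call without IL-4 replicate 1, 2 or 3 or IL-4/IL-6 replicate 1 or 3.

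Integrin and adhesion genes were lowered in 14 of 19 cases and raised in 3 (median -0.75), beside 18.7% and 15.7% of all tested genes. Itgax, which encodes CD11c, was at 351, 331 and 307 CPM with IL-4 and 49.6, 43.7 and 57.4 CPM with IL-4/IL-6 (log2 fold change -2.71 ± 0.11 (SE), adjusted p = 3.7e-07). Its partner Itgb2, the beta chain of the leukocyte integrins, was at 1566, 1499.7 and 1557 CPM with IL-4 and 482, 448 and 493 CPM with IL-4/IL-6 (log2 fold change -1.70 ± 0.07 (SE), adjusted p = 4.4e-07). Itgal (log2 fold change -1.37), Itga4 (-1.37), Itgb5 (-0.94), Itga6 (-0.89) and Itgav (-0.84) were lower as well, and Itgam, which encodes CD11b, fell only by a small step (207 ± 4.54 to 162 ± 12.2 CPM, log2 fold change -0.35 ± 0.08 (SE), adjusted p = 0.0069). Against this, Itga9 was at 2.76, 1.70 and 1.30 CPM with IL-4 and 17, 19.7 and 18 CPM with IL-4/IL-6 (log2 fold change 3.24 ± 0.22 (SE), adjusted p = 6.6e-06). Icam1, a ligand of the leukocyte integrins, rose from 10.2 ± 0.303 to 32.5 ± 4.93 CPM (log2 fold change 1.68 ± 0.13 (SE), adjusted p = 1.3e-05). All leave-one-out fits gave 14 lower members.

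Complement genes changed in both directions. Properdin (Cfp), which stabilizes the C3 convertase, was at 322, 317 and 331 CPM with IL-4 and 407, 525 and 400.3 CPM with IL-4/IL-6 (log2 fold change 0.46 ± 0.11 (SE), adjusted p = 0.0093). The receptors for the complement peptides fell, C5ar1 from 312 ± 5.95 to 187 ± 8.11 CPM (log2 fold change -0.74 ± 0.07 (SE), adjusted p = 4.1e-05), C5ar2 by 1.32 and C3ar1 by 0.54 on the log2 scale. C1qa fell from 274 ± 8.45 to 202 ± 43.0 CPM (log2 fold change -0.44 ± 0.13 (SE), adjusted p = 0.030), and C1qb (-0.06 ± 0.11) and C1qc (-0.21 ± 0.12), which form the same complex, were not called. There were 4 higher and 5 lower genes of 14. In the complement list the number of lower genes was 8 without IL-4/IL-6 replicate 2. C1qa lost its call without IL-4 replicate 1, 2 or 3 or IL-4/IL-6 replicate 1 or 3.

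Genes of iron handling and the acute phase were higher in 6 of 12 cases and lower in 2 (median 0.39). Tfrc was at 279.6, 268 and 292 CPM with IL-4 and 912, 788 and 882 CPM with IL-4/IL-6 (log2 fold change 1.62 ± 0.08 (SE), adjusted p = 1.2e-06). Slc11a2, which takes iron out of the endosome, rose from 54.4 ± 2.73 to 80.7 ± 3.07 CPM, and Hmox1, which breaks down haem, was at 544, 537 and 587 CPM with IL-4 and 1945, 2066 and 1707 CPM with IL-4/IL-6 (log2 fold change 1.78 ± 0.09 (SE), adjusted p = 1.3e-06). Fth1, the ferritin heavy chain, was at 12037, 12090.4 and 13013 CPM with IL-4 and 7069, 9332 and 6279 CPM with IL-4/IL-6 (log2 fold change -0.71 ± 0.13 (SE), adjusted p = 0.0030). Slc11a1, the phagosomal metal transporter NRAMP1, was at 70.5, 80.8 and 74.9 CPM with IL-4 and 28.9, 22.7 and 27.2 CPM with IL-4/IL-6 (log2 fold change -1.52 ± 0.11 (SE), adjusted p = 7.8e-06). Ftl1 (log2 fold change -0.35 ± 0.16) was not called, nor were the acute phase genes Saa3 (0.20 ± 0.21) and Hp (0.03 ± 0.24) that IL-6 raises in liver. Serpina3n rose from 0.253 ± 0.0665 to 1.48 ± 0.178 CPM.

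The phagocyte NADPH oxidase, which makes superoxide, was lowered in 6 of 7 genes (median -0.60). Cybb, its catalytic subunit, was at 272, 257 and 244 CPM with IL-4 and 53.1, 49.6 and 65.1 CPM with IL-4/IL-6 (log2 fold change -2.2 ± 0.11 (SE), adjusted p = 1.2e-06). Cyba, its membrane partner, fell from 537 ± 3.60 to 346 ± 73.6 CPM, and the cytosolic subunit genes Ncf1 and Ncf4 had log2 fold changes of -0.59 for Ncf1 and -0.85 for Ncf4. Of 26 NRF2 and glutathione genes, which act against oxidants, 14 were lower, 2 higher and 10 not called (median -0.38). Gpx1, a glutathione peroxidase, was at 721, 724 and 733 CPM with IL-4 and 294, 389 and 272 CPM with IL-4/IL-6 (log2 fold change -1.19 ± 0.12 (SE), adjusted p = 8.4e-05). The peroxiredoxin gene Prdx1 was at 1005, 969.8 and 1049 CPM with IL-4 and 413, 581 and 393 CPM with IL-4/IL-6 (log2 fold change -1.13 ± 0.14 (SE), adjusted p = 0.00025). Sod1 fell from 152 ± 9.23 to 67.8 ± 13.7 CPM. Slc7a11, the cystine importer, fell from 6.85 ± 0.412 to 1.33 ± 0.241 CPM. The raised members were Hmox1 and the mitochondrial superoxide dismutase gene Sod2 (84.0 ± 6.21 to 119 ± 16 CPM). In the NRF2 and glutathione list the number of higher genes was 4 without IL-4/IL-6 replicate 3.

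Genes of cell fusion and of the osteoclast, the bone-resorbing relative of the macrophage, were lower in 8 of 15 cases and higher in 2 (median -0.61). Tnfrsf11a, which encodes the receptor RANK, was at 95.6, 95.7 and 99.1 CPM with IL-4 and 50.2, 41.6 and 53.6 CPM with IL-4/IL-6 (log2 fold change -1.0 ± 0.10 (SE), adjusted p = 6.4e-05). Acp5, the osteoclast phosphatase, fell from 20.5 ± 0.890 to 13 ± 1.12 CPM. Cd9 and Cd81, tetraspanins that restrain fusion, changed in opposite directions. Cd9 was at 511, 502 and 567 CPM with IL-4 and 214, 279.5 and 208 CPM with IL-4/IL-6 (log2 fold change -1.17 ± 0.12 (SE), adjusted p = 7.0e-05). Cd81 was at 91.4, 92.5 and 87.0 CPM with IL-4 and 496, 617 and 458 CPM with IL-4/IL-6 (log2 fold change 2.54 ± 0.12 (SE), adjusted p = 7.0e-07). Nfatc1 (log2 fold change -0.19 ± 0.13) and Ctsk (0.16 ± 0.11) were not called.

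Matrix genes and matrix proteases changed in both directions. Fibronectin (Fn1) was at 518, 537 and 437 CPM with IL-4 and 2157, 1376 and 2499 CPM with IL-4/IL-6, Tgfbi, which links collagen to integrins, at 929, 977 and 935 CPM with IL-4 and 3014, 2713 and 2573 CPM with IL-4/IL-6 (log2 fold change 1.55 ± 0.08 (SE), adjusted p = 1.4e-06), and osteopontin (Spp1) at 2054, 1959 and 2232 CPM with IL-4 and 5053, 6441 and 4678 CPM with IL-4/IL-6 (log2 fold change 1.37 ± 0.12 (SE), adjusted p = 3.1e-05). The metalloproteinase inhibitor genes Timp1 and Timp2 rose by 2.87 and 1.07 on the log2 scale. The elastase gene Mmp12 was at 1216, 1133 and 1196 CPM with IL-4 and 244, 297 and 281 CPM with IL-4/IL-6 (log2 fold change -2.11 ± 0.09 (SE), adjusted p = 4.5e-07). The plasminogen activator Plau was at 537, 536 and 577 CPM with IL-4 and 168, 201 and 168 CPM with IL-4/IL-6 (log2 fold change -1.62 ± 0.09 (SE), adjusted p = 2.2e-06). Its receptor gene Plaur fell from 89.9 ± 1.70 to 45 ± 5.73 CPM. Mmp8 (log2 fold change -1.25) and Mmp9 (-0.79) were lower, and Mmp14 (1.84), Mmp19 (1.12) and Mmp13 (0.37) higher. Counts were 9 higher and 8 lower of 19 (median 0.27). Mmp13 lost its call without IL-4 replicate 1 or 2.

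Growth factor genes were called in most of 18 cases, 7 higher and 10 lower (median -0.49). The platelet-derived growth factors went to opposite sides. Pdgfc was at 1.22, 0.824 and 0.919 CPM with IL-4 and 27.9, 26.5 and 25.2 CPM with IL-4/IL-6 (log2 fold change 4.74 ± 0.16 (SE), adjusted p = 1.4e-07). Pdgfb was at 38.4, 45.4 and 42.4 CPM with IL-4 and 2.30, 2.19 and 2.64 CPM with IL-4/IL-6 (log2 fold change -4.14 ± 0.13 (SE), adjusted p = 9.7e-08). Hbegf, a ligand of the EGF receptor, was at 21.9, 20.6 and 19.7 CPM with IL-4 and 98.6, 108 and 106 CPM with IL-4/IL-6 (log2 fold change 2.33 ± 0.08 (SE), adjusted p = 2.2e-07). Igf1 was at 951, 962 and 977 CPM with IL-4 and 428, 445 and 432 CPM with IL-4/IL-6 (log2 fold change -1.15 ± 0.07 (SE), adjusted p = 2.2e-06). Tgfb1 fell from 364 ± 12.9 to 245 ± 2.13 CPM. The vascular growth factor genes Vegfa and Vegfc fell, with log2 fold changes of -1.58 for Vegfa and -3.74 for Vegfc, and Vegfb rose (0.45). Vegfd, at 0 or 1 count in the IL-4 libraries, was at 0.0531, 0 and 0 CPM with IL-4 and 4.32, 4.65 and 4.67 CPM with IL-4/IL-6. Vegfb lost its call without IL-4 replicate 1 or 3.

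Among receptors of the colony-stimulating factors, Csf3r, the G-CSF receptor, was at 42.3, 42.2 and 37.1 CPM with IL-4 and 116, 109 and 133 CPM with IL-4/IL-6 (log2 fold change 1.56 ± 0.10 (SE), adjusted p = 4.2e-06). Csf2ra, the GM-CSF receptor alpha chain, was at 448, 454 and 438 CPM with IL-4 and 211, 197 and 228 CPM with IL-4/IL-6 (log2 fold change -1.07 ± 0.08 (SE), adjusted p = 8.3e-06). Csf1r was not called (-0.25 ± 0.09, adjusted p = 0.056) nor was Csf2rb (log2 fold change -0.02 ± 0.09). The list had 1 higher and 3 lower of 8. Eicosanoid genes also changed in both directions. Ptger4, a receptor for prostaglandin E2, rose from 16.1 ± 0.553 to 39.4 ± 4.15 CPM (log2 fold change 1.29 ± 0.10 (SE), adjusted p = 1.6e-05) and the lysosomal phospholipase gene Pla2g15 from 139 ± 2.04 to 332 ± 11 CPM (log2 fold change 1.26 ± 0.07 (SE), adjusted p = 1.7e-06). Alox5ap, the helper of leukotriene synthesis, fell from 53.7 ± 2.32 to 38.9 ± 3.72 CPM and Lta4h from 84.1 ± 0.813 to 66.1 ± 4.30 CPM. Of 18 members 5 were higher and 6 lower (median 0.05). In the CSF receptor list the number of higher genes was 2 without IL-4/IL-6 replicate 2, and the number of lower genes was 5 without IL-4/IL-6 replicate 2. In the eicosanoid list the number of higher genes was 3 without IL-4 replicate 1, 2 or 3. Eicosanoid genes had a median log2 fold change of 0.0072 without IL-4/IL-6 replicate 1 and 0.093 without IL-4 replicate 3.

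Proliferation genes were lowered as a group. All 41 tested genes of mitosis and cytokinesis were lower, 28 of them beyond a log2 fold change of 1.5, with a median of -1.60, and at least 41 were lower in each fit that left out 1 library. Summed over the list, the level was 1256, 1348 and 1226 CPM with IL-4 and 437, 431 and 482 CPM with IL-4/IL-6. Mki67, the proliferation antigen, was at 139, 157 and 127 CPM with IL-4 and 48.2, 35.1 and 61.6 CPM with IL-4/IL-6 (log2 fold change -1.55 ± 0.18 (SE), adjusted p = 0.00017). Ccnb2, a cyclin of mitosis, was at 11.7, 12.1 and 10.7 CPM with IL-4 and 1.53, 3.25 and 1.97 CPM with IL-4/IL-6 (log2 fold change -2.35 ± 0.23 (SE), adjusted p = 5.8e-05). Tpx2, the least changed member, was at 57.1, 59.9 and 58.6 CPM with IL-4 and 34.2, 33 and 36.5 CPM with IL-4/IL-6 (log2 fold change -0.76 ± 0.08 (SE), adjusted p = 7.6e-05). The changes thus spanned -2.35 to -0.76 within the list. Top2a fell from 168 ± 4.27 to 58 ± 7.45 CPM and Ccna2 from 43.5 ± 2.61 to 11 ± 0.345 CPM.

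DNA replication and G1/S genes followed with smaller steps, 36 of 41 lower (median -0.87). Pcna, the clamp of the replication fork, was at 983, 1012 and 1064 CPM with IL-4 and 469, 569 and 438 CPM with IL-4/IL-6 (log2 fold change -1.05 ± 0.10 (SE), adjusted p = 5.4e-05). Rrm2, which supplies deoxynucleotides, fell from 109 ± 10.1 to 31.0 ± 2.93 CPM (log2 fold change -1.82 ± 0.10 (SE), adjusted p = 2.2e-06) and Tk1 from 53.5 ± 7.23 to 13.5 ± 1.06 CPM (log2 fold change -1.99 ± 0.12 (SE), adjusted p = 3.2e-06). The 6 subunits of the MCM helicase, Mcm2 to Mcm7, were all lower, with log2 fold changes of -0.68 for Mcm2, -0.76 for Mcm3, -0.73 for Mcm4, -1.28 for Mcm5, -0.96 for Mcm6 and -1.28 for Mcm7. Ccnd1, the cyclin that growth factors induce, was at 285, 295 and 259 CPM with IL-4 and 165, 115 and 181 CPM with IL-4/IL-6 (log2 fold change -0.86 ± 0.15 (SE), adjusted p = 0.0018), whereas Ccnd3 rose from 39.6 ± 2.13 to 48.5 ± 2.71 CPM and Cdk4 (0.24 ± 0.10) was not called. In the DNA replication list the number of higher genes was 0 without IL-4 replicate 1, 2 or 3 or IL-4/IL-6 replicate 1 and 2 without IL-4/IL-6 replicate 3. Ccnd3 lost its call without IL-4 replicate 1, 2 or 3 or IL-4/IL-6 replicate 1.

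Among inhibitors of the cell cycle, Cdkn1a, which encodes p21, was at 214, 207 and 209.7 CPM with IL-4 and 412, 337 and 314 CPM with IL-4/IL-6 (log2 fold change 0.75 ± 0.10 (SE), adjusted p = 0.00043). Gadd45g rose from 20.7 ± 0.842 to 60.6 ± 16.6 CPM (log2 fold change 1.55 ± 0.17 (SE), adjusted p = 0.00013) and Zmat3, a p53 target, from 29.6 ± 0.770 to 73.2 ± 11.4 CPM. Cdkn2c, which encodes p18, fell from 36.3 ± 2.25 to 17.5 ± 0.706 CPM and Btg2, an antiproliferative gene, from 10.1 ± 0.989 to 2.65 ± 0.108 CPM (log2 fold change -1.93 ± 0.15 (SE), adjusted p = 1.3e-05). Cdkn1b, which encodes p27, was not called (log2 fold change -0.25 ± 0.10). The list gave 9 higher and 6 lower of 22 (median 0.11). Survival genes of the BCL2 family were higher in 5 and lower in 6 of 20 cases (median 0.00). Mcl1 rose from 454 ± 11 to 601 ± 56.6 CPM and Bcl2 and the pro-apoptotic Bcl2l11 fell, with log2 fold changes of -0.90 for Bcl2 and -1.17 for Bcl2l11. Bcl2l1 (log2 fold change 0.13 ± 0.08) was not called. Inhibitor genes had a median log2 fold change of 0.20 without IL-4 replicate 3. In the BCL2 list the number of lower genes was 3 without IL-4 replicate 3. BCL2 genes had a median log2 fold change of -0.063 without IL-4 replicate 1 and 0.03 without IL-4 replicate 2.

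Genes that build ribosomes were raised or not called. Of 28 genes in the MYC and ribosome biogenesis list 16 were higher and 0 lower (median 0.36). Ncl, which encodes nucleolin, was at 801, 861 and 838 CPM with IL-4 and 1225, 1253 and 1187 CPM with IL-4/IL-6 (log2 fold change 0.55 ± 0.07 (SE), adjusted p = 0.00025). Npm1 rose from 649 ± 26.1 to 837 ± 131 CPM, the fibrillarin gene Fbl from 156 ± 7.77 to 208 ± 32.4 CPM and Rrp12 from 50.8 ± 2.49 to 80.6 ± 7.82 CPM. The rise of each was less than 1 on the log2 scale. Myc itself was at 122, 123 and 121 CPM with IL-4 and 129, 124 and 118 CPM with IL-4/IL-6, with a 95% interval of the log2 fold change from -0.14 to 0.17. The ribosomal protein genes, which are short, followed the length trend among the replicates, whose part in their values was not tested: 3 of 44 were higher (median 0.25), and their summed level was 31236, 32251 and 32820.1 CPM with IL-4 and 35728, 47662 and 31160.5 CPM with IL-4/IL-6. IL-4/IL-6 replicates 1 and 2 stood above all IL-4 libraries and replicate 3 below them. In the ribosome biogenesis list the number of lower genes was 1 without IL-4/IL-6 replicate 2. In the ribosomal protein list the number of higher genes was 0 without IL-4 replicate 1 or 3 or IL-4/IL-6 replicate 1, 1 without IL-4 replicate 2, 6 without IL-4/IL-6 replicate 2 and 34 without IL-4/IL-6 replicate 3, and the number of lower genes was 1 without IL-4/IL-6 replicate 2. Ribosomal protein genes had a median log2 fold change of 0.033 without IL-4/IL-6 replicate 2 and 0.38 without IL-4/IL-6 replicate 3. Fbl and Npm1 lost their calls without IL-4 replicate 1, 2 or 3.

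Chaperones of the endoplasmic reticulum, which fold secreted proteins, were higher in 12 of 25 genes and lower in 0 (median 0.29). Pdia4, a disulfide isomerase, was at 322, 317 and 322 CPM with IL-4 and 946, 921 and 914 CPM with IL-4/IL-6 (log2 fold change 1.53 ± 0.07 (SE), adjusted p = 4.5e-07). No other member came near it. Hspa5, which encodes BiP, was at 1393, 1319 and 1463 CPM with IL-4 and 1939.8, 2196 and 1929.8 CPM with IL-4/IL-6 (log2 fold change 0.54 ± 0.08 (SE), adjusted p = 0.00078). Herpud1 (log2 fold change 0.87), Manf (0.72) and Pdia6 (0.50) rose, and Ddit3, the death effector of the unfolded protein response, was not called (0.15 ± 0.13). Of 15 heat shock genes 4 were higher, among them the mitochondrial chaperonin gene Hspd1 (log2 fold change 0.56), and 1, the cochaperone gene Bag3 (-0.78), lower. ATF4 targets and genes of serine and one-carbon metabolism were higher in 10 of 28 and lower in 3. Atf5 rose from 54.5 ± 2.76 to 104 ± 11.2 CPM. Atf3 fell from 514 ± 9.05 to 319 ± 16.8 CPM and the serine synthesis gene Psat1 from 195 ± 5.92 to 135 ± 3.89 CPM. In the ER chaperone list the number of higher genes was 7 without IL-4 replicate 2. In the heat shock list the number of higher genes was 2 without IL-4 replicate 1, 2 or 3 or IL-4/IL-6 replicate 1. In the serine and ATF4 list the number of higher genes was 3 without IL-4 replicate 1 or 3, 5 without IL-4/IL-6 replicate 1 and 6 without IL-4 replicate 2, and the number of lower genes was 5 without IL-4/IL-6 replicate 2.

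Among lipid genes, members changed in both directions. Abca1, the cholesterol efflux pump, was at 23.3, 15.9 and 20.3 CPM with IL-4 and 4.05, 4.32 and 6.02 CPM with IL-4/IL-6 (log2 fold change -2.05 ± 0.19 (SE), adjusted p = 4.5e-05). Abcg1, another pump, was at 153, 136 and 144 CPM with IL-4 and 60.0, 69.0 and 79.5 CPM with IL-4/IL-6 (log2 fold change -1.05 ± 0.11 (SE), adjusted p = 7.1e-05). Nr1h3, the liver X receptor alpha that induces both, fell from 21.3 ± 0.598 to 8.01 ± 0.635 CPM (log2 fold change -1.41 ± 0.11 (SE), adjusted p = 1.3e-05). Mylip, a ubiquitin ligase gene that liver X receptors induce, rose from 16.2 ± 0.970 to 63.2 ± 8.35 CPM (log2 fold change 1.96 ± 0.11 (SE), adjusted p = 2.4e-06). Synthesis genes moved by small steps, with log2 fold changes of 0.83 for Mvd, 0.64 for Fdps, 0.47 for Sqle and 0.30 for Idi1, while Dhcr7 fell (-0.42) and Hmgcs1 (0.29 ± 0.12) and Cyp51 (-0.02 ± 0.08) were not called. Over 29 genes of cholesterol synthesis and transport 11 were higher and 4 lower (median 0.15). In the cholesterol list the number of higher genes was 7 without IL-4 replicate 1 or 2 or IL-4/IL-6 replicate 1. Cholesterol genes had a median log2 fold change of 0.24 without IL-4/IL-6 replicate 3. Fdps lost its call without IL-4 replicate 1 or 2 or IL-4/IL-6 replicate 1 or 3, and Idi1 lost its call without IL-4 replicate 1, 2 or 3 or IL-4/IL-6 replicate 1 or 3.

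Lipa, the lysosomal acid lipase, was at 1090.2, 1056 and 1076 CPM with IL-4 and 338, 294 and 372 CPM with IL-4/IL-6 (log2 fold change -1.68 ± 0.09 (SE), adjusted p = 2.0e-06). Lpl, which frees fatty acids from lipoproteins, was at 7802, 7622 and 7807 CPM with IL-4 and 3024, 3277 and 2861 CPM with IL-4/IL-6 (log2 fold change -1.34 ± 0.08 (SE), adjusted p = 2.2e-06). Cd36, which takes them up, was at 2930.1, 2859 and 3030.0 CPM with IL-4 and 1186, 1067 and 1134 CPM with IL-4/IL-6. Cpt1a, the gate of mitochondrial fatty acid oxidation, fell from 114 ± 5.53 to 66.5 ± 12.5 CPM (log2 fold change -0.77 ± 0.13 (SE), adjusted p = 0.0016), and Ucp2 from 616 ± 14.3 to 283 ± 13.1 CPM. Ppard rose from 5.87 ± 1.08 to 19.7 ± 2.33 CPM (log2 fold change 1.74 ± 0.16 (SE), adjusted p = 3.5e-05). Pparg fell, and Fabp5 rose from 483 ± 12.2 to 982 ± 59.0 CPM while Fabp4 was not called (log2 fold change -0.09 ± 0.15). The list had 5 higher and 10 lower of 29 (median -0.11). Acadm (log2 fold change 0.05 ± 0.08) and Hadha (-0.11 ± 0.08), enzymes of beta-oxidation, were not called. In the fatty acid list the number of higher genes was 3 without IL-4 replicate 2 or 3. Fatty acid genes had a median log2 fold change of -0.19 without IL-4/IL-6 replicate 2 and -0.063 without IL-4/IL-6 replicate 3.

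Glycolysis and pentose phosphate genes were lower in 13 of 29 and higher in 3 (median -0.18). Of the enzyme genes of the pentose phosphate pathway, G6pdx fell from 151 ± 6.30 to 92.6 ± 5.23 CPM (log2 fold change -0.70 ± 0.08 (SE), adjusted p = 1.0e-04), Pgd from 488 ± 5.46 to 377 ± 11.1 CPM, Taldo1 from 369.8 ± 5.87 to 230.0 ± 28.4 CPM and Tkt from 613 ± 19.1 to 469 ± 17.3 CPM, whereas Pgls (-0.01 ± 0.16) and Rpia (0.39 ± 0.18) were not called. Pfkp fell from 188 ± 6.76 to 109.7 ± 6.83 CPM. Hk3, a hexokinase of myeloid cells, rose from 461 ± 18.9 to 746 ± 19.8 CPM (log2 fold change 0.69 ± 0.07 (SE), adjusted p = 6.0e-05), and Pfkfb3, which activates glycolysis, from 25 ± 2.56 to 43.3 ± 6.58 CPM. Slc16a3, the lactate exporter, was at 116, 92.4 and 95.6 CPM with IL-4 and 53, 129 and 97.8 CPM with IL-4/IL-6, and the IL-4/IL-6 libraries lay on both sides of IL-4. TCA cycle genes (5 higher and 2 lower of 26) and respiratory chain genes (5 and 1 of 50) were mostly not called. In the glycolysis list the number of higher genes was 5 without IL-4/IL-6 replicate 3, and the number of lower genes was 20 without IL-4/IL-6 replicate 2. Glycolysis genes had a median log2 fold change of -0.33 without IL-4/IL-6 replicate 2 and -0.056 without IL-4/IL-6 replicate 1. In the TCA list the number of higher genes was 3 without IL-4 replicate 1, 2 or 3 and 9 without IL-4/IL-6 replicate 2, and the number of lower genes was 0 without IL-4 replicate 1, 2 or 3 or IL-4/IL-6 replicate 1 or 3 and 4 without IL-4/IL-6 replicate 2. In the respiratory chain list the number of higher genes was 0 without IL-4 replicate 1, 2 or 3, 1 without IL-4/IL-6 replicate 1 and 14 without IL-4/IL-6 replicate 3, and the number of lower genes was 0 without IL-4 replicate 1 or 3 or IL-4/IL-6 replicate 3 and 8 without IL-4/IL-6 replicate 2.

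Lysosomal genes changed in both directions. Of 44 tested, 12 were higher and 13 lower (median 0.05). Subunit genes of the proton pump that acidifies the lysosome were among the raised ones, with log2 fold changes of 0.66 for Atp6v1d, 0.66 for Atp6v1h, 0.55 for Atp6v0b, 0.53 for Atp6v0d1, 0.42 for Atp6v0c and 0.40 for Atp6v1a, and Atp6v0d2, the subunit of macrophages and osteoclasts, fell (-0.61). Cathepsin genes went both ways. Ctsl was at 3759, 3659 and 4007 CPM with IL-4 and 9239, 10318 and 8327 CPM with IL-4/IL-6 (log2 fold change 1.29 ± 0.09 (SE), adjusted p = 8.9e-06). Ctsd was at 2589, 2574 and 2660.5 CPM with IL-4 and 1609.5, 2180.4 and 1447 CPM with IL-4/IL-6 (log2 fold change -0.58 ± 0.14 (SE), adjusted p = 0.0097) and Ctss fell by 0.58 on the log2 scale, while Ctsb was not called (0.20 ± 0.07). The transcription factors of lysosomal genes fell, Tfeb from 80.9 ± 1.67 to 28.6 ± 3.32 CPM (log2 fold change -1.5 ± 0.10 (SE), adjusted p = 4.5e-06), Mitf (-0.45) and Tfe3 (-0.41). In the lysosome list the number of higher genes was 7 without IL-4 replicate 2. Lysosome genes had a median log2 fold change of 0.0077 without IL-4/IL-6 replicate 2 and 0.083 without IL-4/IL-6 replicate 1. Atp6v0b lost its call without IL-4 replicate 2, and Atp6v0c lost its call without IL-4 replicate 2 or 3 or IL-4/IL-6 replicate 1, and Ctsd lost its call without IL-4/IL-6 replicate 1.

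Enzymes and receptors of extracellular nucleotides were higher in 8 and lower in 4 of 18 genes (median 0.01). Gja1, which encodes the channel connexin 43, was at 1.27, 3.35 and 1.84 CPM with IL-4 and 335, 314 and 333 CPM with IL-4/IL-6 (log2 fold change 7.25 ± 0.23 (SE), adjusted p = 1.2e-07). The ATP-degrading ectoenzyme genes changed in opposite directions. Entpd1, which encodes CD39, was at 19.8, 16.6 and 17.1 CPM with IL-4 and 3.88, 4.26 and 5.40 CPM with IL-4/IL-6 (log2 fold change -1.98 ± 0.15 (SE), adjusted p = 1.3e-05). Entpd3 had 0 counts in all IL-4 libraries and 4.27, 3.48 and 3.82 CPM with IL-4/IL-6, at least 23.8-fold higher. Enpp2, also at 0 counts with IL-4, had a mean of 0.874 CPM with IL-4/IL-6 (at least 5.40-fold higher), and Enpp1 rose from 55.7 ± 2.55 to 161 ± 8.70 CPM. Of the receptors P2ry2 (log2 fold change 1.27), P2ry6 (0.62), P2ry12 (1.85) and Adora2b (0.68) rose and P2rx4 (-0.40) fell. Placing Ccl1, Entpd3 and Enpp2 at their bounds leaves the medians of their lists as given. Nucleotide genes had a median log2 fold change of -0.025 without IL-4/IL-6 replicate 1 and 0.14 without IL-4/IL-6 replicate 3.

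Hypoxia-inducible genes gave 6 higher and 4 lower of 21 (median 0.14). Ndrg1 was at 11, 8.18 and 8.87 CPM with IL-4 and 55.7, 66.2 and 58.8 CPM with IL-4/IL-6 (log2 fold change 2.68 ± 0.13 (SE), adjusted p = 9.1e-07). Epas1, which encodes HIF-2 alpha, rose from 46.5 ± 0.629 to 75.9 ± 11 CPM. Ankrd37 fell from 15.3 ± 2.65 to 5.80 ± 2.88 CPM. Ak4, a mitochondrial kinase gene, was outside this list and had the third largest spread between IL-4/IL-6 replicates of all genes at 10 CPM or more (4.48, 17 and 13.2 CPM). Like Slc16a3 it was lowest in replicate 1. Actin cytoskeleton and migration genes were lower in 13 of 26 and higher in 5 (median -0.38). Tln1, which links integrins to actin, was at 1904, 1845 and 1645 CPM with IL-4 and 1099, 786 and 1225 CPM with IL-4/IL-6 (log2 fold change -0.79 ± 0.15 (SE), adjusted p = 0.0029). Anxa1 was at 2187, 2170.4 and 2383 CPM with IL-4 and 769, 993 and 746 CPM with IL-4/IL-6 (log2 fold change -1.43 ± 0.11 (SE), adjusted p = 1.7e-05). Rhoc was at 185, 186 and 196 CPM with IL-4 and 49.2, 68.3 and 49.5 CPM with IL-4/IL-6 (log2 fold change -1.76 ± 0.13 (SE), adjusted p = 9.5e-06). Rhob and Zyx rose from 168 ± 7.21 to 295 ± 17.2 CPM and from 201 ± 10.8 to 354 ± 13 CPM. Hypoxia genes had a median log2 fold change of -0.061 without IL-4/IL-6 replicate 2 and 0.26 without IL-4/IL-6 replicate 1. In the actin list the number of higher genes was 3 without IL-4 replicate 1, 2 or 3.

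Macrophage transcription factor genes were 12 higher and 11 lower of 32 (median 0.06). Tfec, a relative of Mitf found in macrophages, was at 14.5, 13.9 and 16.5 CPM with IL-4 and 242, 267 and 215 CPM with IL-4/IL-6 (log2 fold change 4.01 ± 0.12 (SE), adjusted p = 7.9e-08). Maf, a factor that holds macrophages out of the cell cycle, was at 122, 121 and 123 CPM with IL-4 and 518, 573 and 544 CPM with IL-4/IL-6 (log2 fold change 2.16 ± 0.07 (SE), adjusted p = 1.6e-07). Irf5, a driver of inflammatory macrophages, was at 327, 319 and 328 CPM with IL-4 and 122, 107 and 119.9 CPM with IL-4/IL-6 (log2 fold change -1.48 ± 0.08 (SE), adjusted p = 1.4e-06). Klf2 and Id3 fell from 21.4 ± 1.37 to 8.78 ± 1.38 CPM and from 51.5 ± 0.453 to 21.6 ± 3.91 CPM. Spi1, which encodes PU.1, the master factor of the lineage, was at 452, 442 and 458 CPM with IL-4 and 443, 511 and 398 CPM with IL-4/IL-6 and was not called (95% interval of the log2 fold change -0.21 to 0.21). Transcription factor genes had a median log2 fold change of 4.7e-06 without IL-4/IL-6 replicate 2 and 0.10 without IL-4/IL-6 replicate 1.

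Lineage markers were read beside these results. Of 16 macrophage markers 4 were higher and 7 lower (median -0.23), their summed level being 26985, 26714 and 27371 CPM with IL-4 and 21341, 24877 and 20281 CPM with IL-4/IL-6. Adgre1 rose (log2 fold change 0.50 ± 0.08), Lyz2, which encodes lysozyme, fell from 9616 ± 308 to 6598 ± 923 CPM, and Mpeg1, which encodes perforin-2, from 776 ± 36.8 to 287 ± 24.8 CPM (log2 fold change -1.43 ± 0.09 (SE), adjusted p = 2.8e-06). Monocyte markers gave 4 higher and 3 lower of 9 tested, with a summed level of 1082, 1119 and 1017 CPM with IL-4 and 3583, 3019 and 3945 CPM with IL-4/IL-6, of which Fn1 and Chil3 made up most. The levels of other lineages' markers follow, and their part in the results above was not tested. The summed level of the 17 granulocyte and precursor markers was 67.7, 69.1 and 62.8 CPM with IL-4 and 128, 121 and 145 CPM with IL-4/IL-6, with Csf3r its largest member. The 18 basophil, mast cell and eosinophil markers summed to 39.8, 41.7 and 41.6 CPM with IL-4 and 52.7, 52.3 and 50.3 CPM with IL-4/IL-6, with Il4 itself going from 1.4 ± 0.142 to 8.45 ± 1.23 CPM and Gata2 from 1.82 ± 0.302 to 0.203 ± 0.0606 CPM. The 16 lymphocyte markers summed to 2.44, 1.87 and 2.49 CPM with IL-4 and 1.80, 2.19 and 1.69 CPM with IL-4/IL-6. Dendritic cell markers had 3 higher (Cd209a, Kmo and Bst2) and 2 lower (Itgax and Batf3) of 5 tested, and all 13 summed to 626, 588 and 567 CPM with IL-4 and 386, 494 and 349.6 CPM with IL-4/IL-6. Stromal and endothelial markers had 1 of 3 higher, Pecam1 (1.76 ± 1.01 to 6.98 ± 0.795 CPM), and megakaryocyte markers 1 higher, Pf4, and 1 lower, Gp1ba, of 8. All 12 megakaryocyte and platelet markers summed to 253, 242 and 242 CPM with IL-4 and 364, 410.1 and 338 CPM with IL-4/IL-6. In the macrophage marker list the number of lower genes was 11 without IL-4/IL-6 replicate 2. In the dendritic cell list the number of higher genes was 1 without IL-4 replicate 1 or IL-4/IL-6 replicate 1. In the stromal and endothelial list the number of higher genes was 2 without IL-4/IL-6 replicate 2. In the megakaryocyte list the number of higher genes was 2 without IL-4 replicate 1, and the number of lower genes was 2 without IL-4/IL-6 replicate 2 or 3. Kmo lost its call without IL-4 replicate 1 or IL-4/IL-6 replicate 1.

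**Figure D4:**
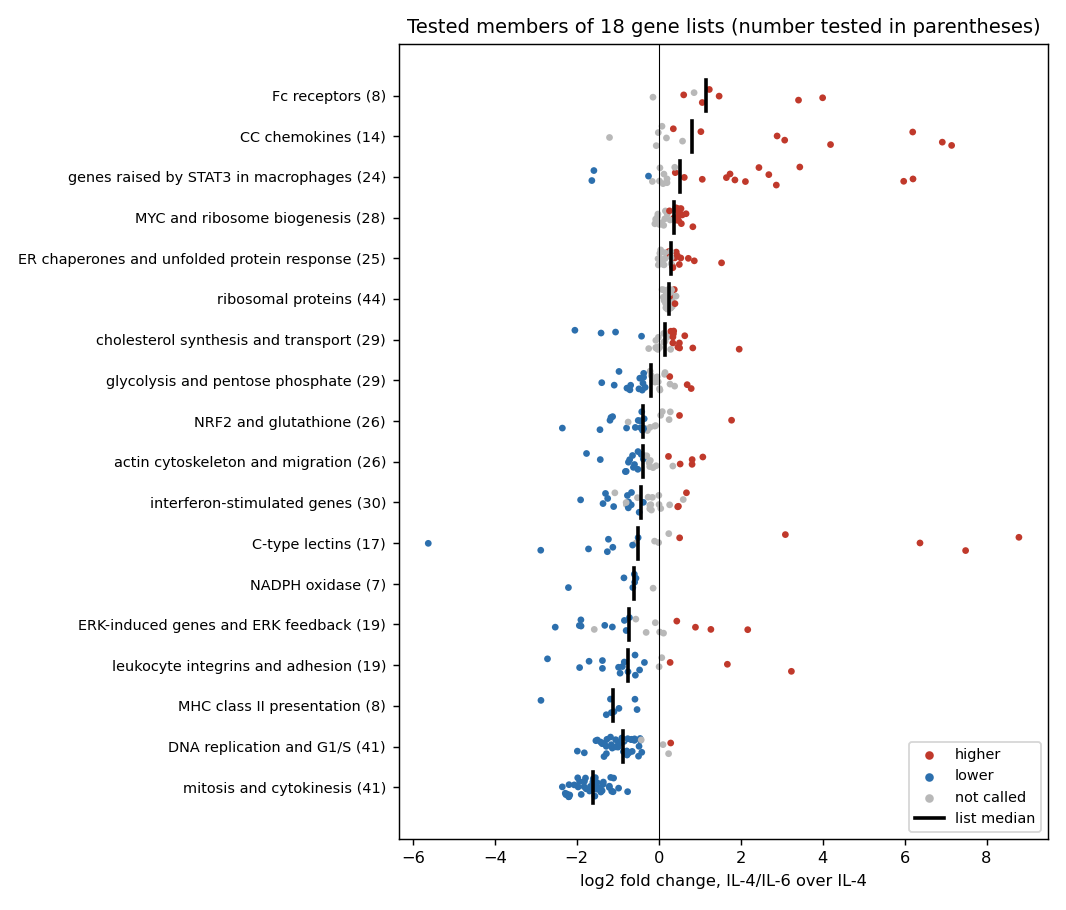
Log2 fold change of IL-4/IL-6 over IL-4 (x axis) for each tested member of 18 gene lists (rows, number tested in parentheses), with called genes in red (higher) or blue (lower), genes not called in grey, and list medians as black bars. Mitosis and cytokinesis genes lie wholly below 0 (median -1.60), Fc receptors and CC chemokines have the highest medians (1.15 and 0.80), and C-type lectins spread furthest.

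The largest changes not yet described were taken from all genes at 10 CPM or more whose libraries did not overlap. On the raised side Nxpe5 was at 3.72, 3.46 and 3.78 CPM with IL-4 and 305, 277 and 302 CPM with IL-4/IL-6 and Ascl2, a transcription factor gene, at 0.531, 0.110 and 0.487 CPM with IL-4 and 29.5, 39.4 and 28.7 CPM with IL-4/IL-6. Ednrb, the endothelin receptor type B, was at 5.26, 6.59 and 7.08 CPM with IL-4 and 503, 436 and 499 CPM with IL-4/IL-6 (log2 fold change 6.25 ± 0.13 (SE), adjusted p = 1.2e-08). Cd38, an ectoenzyme that consumes NAD, rose from 0.342 ± 0.125 to 10.4 ± 2.0 CPM (log2 fold change 4.90 ± 0.28 (SE), adjusted p = 2.1e-06), Tgfbr3, the betaglycan coreceptor of TGF-beta, from 0.469 ± 0.119 to 14.1 ± 2.41 CPM, Fgl2, a prothrombinase and ligand of inhibitory Fc receptors, from 7.75 ± 0.410 to 181 ± 2.85 CPM (log2 fold change 4.54 ± 0.09 (SE), adjusted p = 1.2e-08), and Ms4a4a from 13.9 ± 0.627 to 306 ± 21.8 CPM (log2 fold change 4.46 ± 0.09 (SE), adjusted p = 1.2e-08). Baiap2l1 and Cystm1 completed the group, from 1.35 ± 0.0680 to 22 ± 3.22 CPM and from 3.89 ± 0.570 to 92.1 ± 20.4 CPM.

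On the lowered side, Nes, which encodes the intermediate filament nestin, was at 212, 218 and 205 CPM with IL-4 and 17.8, 20.9 and 24.1 CPM with IL-4/IL-6 (log2 fold change -3.34 ± 0.11 (SE), adjusted p = 1.6e-07). Kcnj2, a potassium channel gene, fell from 58.5 ± 1.93 to 4.48 ± 0.579 CPM (log2 fold change -3.71 ± 0.11 (SE), adjusted p = 9.6e-08), Nptx1 from 16.5 ± 1.71 to 1.26 ± 0.179 CPM, Neurl3 from 23.2 ± 1.01 to 1.78 ± 0.405 CPM, Galnt9 from 12.1 ± 2.11 to 0.524 ± 0.407 CPM and Cd24a from 28.6 ± 1.41 to 2.30 ± 0.384 CPM. Ptpn22, a phosphatase of leukocytes, fell from 35.6 ± 0.856 to 2.97 ± 0.539 CPM (log2 fold change -3.58 ± 0.14 (SE), adjusted p = 2.8e-07), Rnase6, an antimicrobial ribonuclease, from 22.5 ± 0.952 to 1.83 ± 0.474 CPM, Sema4d, a semaphorin, from 143 ± 7.09 to 12.6 ± 1.42 CPM, Adgre5, which encodes CD97, from 27.8 ± 1.37 to 2.71 ± 0.718 CPM and Chst3 from 12.5 ± 0.344 to 1.19 ± 0.433 CPM. Mamdc2 and the pseudogene Nxpe1-ps fell from 14.7 ± 1.32 to 1.28 ± 0.211 CPM and from 12.8 ± 1.97 to 0.685 ± 0.216 CPM. Ocstamp, a gene of cell fusion, Mboat2 and Stap1 fell from 18.8 ± 2.04 to 1.0 ± 0.259 CPM, from 11.4 ± 1.08 to 0.965 ± 0.0883 CPM and from 211 ± 5.83 to 17.9 ± 0.678 CPM.

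Ranked by the amount of RNA gained or lost, other genes led. Among those that gained most, Mrc1 gained 7423 CPM, followed by the cathepsin gene Ctsl (5487), Dab2, an endocytic adaptor (3315), Spp1 (3309), Ccl7 (3227), Il4ra (2195), the protease gene Lgmn (2105), the elongation factor gene Eef1a1 (1927) and Ccl2 (1904). The largest losses in CPM were those of Gpnmb (-7185), Fth1 (-4820.0), Lpl (-4689.8), Psap, the precursor of lysosomal activators (-4343), Lyz2 (-3018), Cd36 (-1811), Anxa1 (-1411), Ctss (-1214), Itgb2 (-1067) and Tmsb4x (-1022). Gpnmb, a transmembrane glycoprotein of phagocytes, was at 13122, 12281 and 12531 CPM with IL-4 and 5436, 5142 and 5799 CPM with IL-4/IL-6 (log2 fold change -1.21 ± 0.08 (SE), adjusted p = 3.8e-06). Dab2 was at 1121, 1133 and 1073 CPM with IL-4 and 4636, 3845 and 4792 CPM with IL-4/IL-6 (log2 fold change 2.0 ± 0.10 (SE), adjusted p = 9.1e-07). Eef1a1 lost its call without IL-4 replicate 1, 2 or 3 or IL-4/IL-6 replicate 1, and Tmsb4x lost its call without IL-4 replicate 2 or 3 or IL-4/IL-6 replicate 1.

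Some genes rose above a low count limit on 1 side only. With a limit of 3 counts, 69 genes were above it in all IL-4/IL-6 libraries and at or below it in all IL-4 libraries. Of these, 24 passed the filter and were called. The reverse held for 143 genes (28 called). The limit sets no margin between the groups, and most of these genes were not called. With a limit of 10 counts the numbers were 83 and 160. The most abundant genes found with IL-6 were Cd209e and Cd209a, then Fcrlb (0.106, 0 and 0.162 CPM with IL-4 and 5.96, 5.38 and 6.35 CPM with IL-4/IL-6), Car4 (0.0531, 0.165 and 0.162 CPM with IL-4 and 3.61, 6.84 and 4.89 CPM with IL-4/IL-6), Vegfd, A4galt (0.159, 0 and 0 CPM with IL-4 and 5.69, 4.32 and 3.54 CPM with IL-4/IL-6), Entpd3 and Dusp14 (0.159, 0.110 and 0 CPM with IL-4 and 2.90, 2.64 and 2.31 CPM with IL-4/IL-6). Those above the limit only with IL-4 were at lower levels. After Clec4b1 came 2010300C02Rik (3.66, 2.75 and 2.43 CPM with IL-4 and 0, 0.0561 and 0.169 CPM with IL-4/IL-6). Next were Sh2d1b1, an adaptor of SLAM receptors (3.08, 2.03 and 3.62 CPM with IL-4 and 0.164, 0.168 and 0.169 CPM with IL-4/IL-6), and Cav1, which encodes caveolin-1 (2.28, 2.31 and 2.0 CPM with IL-4 and 0.0547, 0.168 and 0.112 CPM with IL-4/IL-6). Slc9a3r2, Gm15513, Prr33 and Dgkg were each below 2 CPM on average with IL-4 and had at most 3 counts per IL-4/IL-6 library.

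At the other end, the most abundant genes that were not called and whose 95% interval lay inside -0.58 to 0.58 were Ctsb (log2 fold change 0.20 ± 0.07, interval 0.04 to 0.35), the mitochondrial gene mt-Co1 (-0.12 ± 0.07, -0.28 to 0.05), Apoe (-0.24 ± 0.13, -0.53 to 0.04), Lgals3 (-0.29 ± 0.12, -0.56 to -0.02) and Actb (-0.23 ± 0.09, -0.43 to -0.04). Of these, Apoe was at 8896, 8879 and 9268 CPM with IL-4 and 6867, 9348 and 6609.6 CPM with IL-4/IL-6, and the IL-4/IL-6 libraries spread widely enough to cover the IL-4 values. The genes that varied most between the IL-4/IL-6 replicates were the small RNA genes Gm24270 and Gm23935, which also varied with IL-4 (513, 498 and 236 CPM with IL-4 and 87.2, 111 and 403 CPM with IL-4/IL-6), then Ak4, Atp7a (22.5, 21.3 and 19.9 CPM with IL-4 and 20.2, 7.85 and 27.8 CPM with IL-4/IL-6) and Gm5425 (6.32, 7.36 and 7.95 CPM with IL-4 and 10.3, 26.4 and 7.70 CPM with IL-4/IL-6). Med12 and Zfp871 had their lowest values in replicate 2, as Atp7a did, and Vamp8 its highest. Trmt2a and Ak4 were lowest in replicate 1.

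Whether the effect of IL-6 depends on the cytokine it joins was read from the IL-13 libraries, which share no library with the IL-4 comparison and used IL-13 at 40 ng/ml against IL-4 at 10 ng/ml, so that the cytokine and its dose cannot be told apart. IL-13 binds a receptor that also contains IL4RA. IL-6 added to IL-13 raised 1515 (11.9%) and lowered 1715 (13.5%) of 12730 genes. Of 12415 genes tested in both comparisons, 2520 were called in both, 1072 of them higher in both, 1421 lower in both, and 27 in opposite directions (21 lower with IL-4 and higher with IL-13, and 6 the reverse). The difference between the effects was tested over all 15 libraries as an interaction: it was above 0, that is more positive with IL-4, for 449 genes (3.22%) and below 0 for 616 (4.42%) of 13938. Without IL-4 replicate 2 the first number was 293. The CPM of the IL-13 groups are on a TMM scale of all 15 libraries, on which the IL-4 and IL-4/IL-6 values would be 1.01 to 1.05 times those given here.

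Cd163 rose from 15.1 ± 0.844 to 198 ± 31.5 CPM with IL-4 and from 23.8 ± 4.5 to 75.7 ± 8.35 CPM with IL-13 (log2 fold change 3.72 ± 0.13 with IL-4 and 1.66 ± 0.13 with IL-13, difference 2.09 ± 0.20, adjusted p = 3.2e-06). Hcar2, the niacin and hydroxybutyrate receptor, was at 0.903, 0.714 and 1.08 CPM with IL-4 and 11.3, 16.4 and 15.7 CPM with IL-4/IL-6 and went from 1.66 ± 0.205 to 4.51 ± 0.350 CPM with IL-13 (log2 fold change 4.0 ± 0.23 with IL-4 and 1.43 ± 0.20 with IL-13, difference 2.60 ± 0.29, adjusted p = 2.0e-05). 3300005D01Rik was called higher with IL-4 and was not called with IL-13 (log2 fold change 2.96 ± 0.18 with IL-4 and -0.34 ± 0.32 with IL-13, difference 3.34 ± 0.35, adjusted p = 9.7e-06). Tgfbr3 and Baiap2l1 rose in both, by more with IL-4, with differences of 2.45 ± 0.61 and 2.37 ± 0.37 (adjusted p = 0.019 and 0.00039).

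On the other side, Pdgfb fell from 42.1 ± 3.49 to 2.38 ± 0.238 CPM with IL-4 and from 54.3 ± 3.24 to 15 ± 1.85 CPM with IL-13 (log2 fold change -4.14 ± 0.13 with IL-4 and -1.86 ± 0.10 with IL-13, difference -2.24 ± 0.17, adjusted p = 4.1e-07). Nes went from 145 ± 9.40 to 64.8 ± 4.09 CPM with IL-13 (log2 fold change -3.34 ± 0.11 with IL-4 and -1.16 ± 0.08 with IL-13, difference -2.14 ± 0.14, adjusted p = 1.4e-07). Il18rap fell with IL-4 and was not called with IL-13 (log2 fold change -2.88 ± 0.21 with IL-4 and -0.40 ± 0.17 with IL-13, difference -2.45 ± 0.26, adjusted p = 1.2e-05). Nxpe1-ps fell in both comparisons and further with IL-4, with a difference of -2.03 ± 0.28 (adjusted p = 0.00012).

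Over all tested genes the interaction was above 0 for 3.22% and below 0 for 4.42%. IL-6 added to IL-13 raised 11.9% and lowered 13.5% of those tested. The list counts that follow stand beside these shares. Counted by calls of the interaction test, cholesterol genes differed most of the lists, though the median difference was larger for C-type lectins (-0.81 on the log2 scale, against -0.67). With IL-4, 11 of 29 were higher (median 0.15), and IL-6 gave 23 higher and 3 lower of 29 with IL-13 (median 0.89). For 20 of them the effect was lower with IL-4 by the interaction test, and for 1 higher. C-type lectins had 8 interactions below 0 and 0 above, with 7 higher and 6 lower of 15 with IL-13 (median 0.14). Complement genes had 8 below 0 and 0 above (1 at an unadjusted p below 0.05 and 0 with DESeq2), with 10 higher and 1 lower of 14 with IL-13 (median 0.42). For the other counts of 0 interactions in 1 direction given here, none was found at an unadjusted p below 0.05 or with DESeq2, apart from the mitosis genes. Ribosome biogenesis was the reverse, with 8 interactions above 0 and 0 below, and 5 higher and 1 lower of 28 with IL-13 (median 0.07). Interferon-stimulated genes, 12 of 30 lower with IL-4, had 2 higher and 1 lower of 30 with IL-13 (median 0.11), with 1 interaction below 0 and 0 above. Mitosis genes had 0 higher and 41 lower of 41 with IL-13 (median -1.42) and 0 interactions in either direction (0 above and 4 below 0 at an unadjusted p below 0.05, and 0 and 0 with DESeq2). STAT3 targets had 17 higher and 1 lower of 24 with IL-13 (median 1.07), 3 interactions above 0 and 4 below.

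Of the followed genes at 10 CPM or more, 7 were called in opposite directions, all lower with IL-4 and higher with IL-13. C5ar1 had a log2 fold change of -0.74 ± 0.07 with IL-4 and 0.20 ± 0.06 with IL-13, difference -0.90 ± 0.08, adjusted p = 3.1e-06. Clec4a3 had a log2 fold change of -0.50 ± 0.13 with IL-4 and 0.57 ± 0.11 with IL-13, difference -1.03 ± 0.18, adjusted p = 0.0011. The others were the cholesterol synthesis gene Dhcr7 (difference -0.83 ± 0.10), C1qa (-0.82 ± 0.19), Itgam (-0.66 ± 0.09), Junb (-0.62 ± 0.09) and the thromboxane synthase gene Tbxas1 (-0.59 ± 0.08), and each difference passed the interaction test. In the IL-4 comparison Clec4a3 lost its call without IL-4 replicate 2 or 3 or IL-4/IL-6 replicate 1. C1qa and Junb lost theirs without IL-4 replicate 1, 2 or 3 or IL-4/IL-6 replicate 1 or 3.

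**Figure D5:**
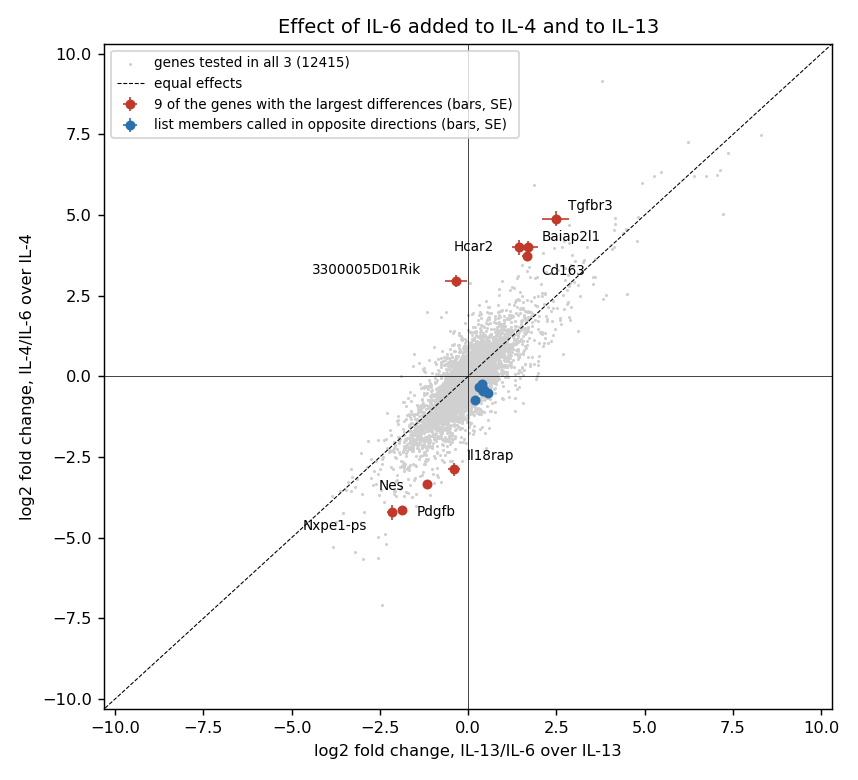
Log2 fold change of IL-4/IL-6 over IL-4 (y axis) against that of IL-13/IL-6 over IL-13 (x axis) for 12415 genes (grey); red points with SE bars are 9 of the genes with the largest differences between the effects, blue points the 7 list members called in opposite directions, and the dashed line marks equal effects. Tgfbr3, Hcar2 and Cd163 lie above it and Il18rap, Nes and Pdgfb below.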

How the data were processed

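RNA was extracted with Trizol from BMDMs of 5 groups of 3 libraries, and libraries were made and sequenced by a service company. Per the labels and as deposited, the authors gave whole-number counts of reads per Ensembl gene, with no normalization; their processing notes list CASAVA, Bowtie2 2.2.3, HISAT2 2.1.0, TopHat2, DESeq2 and the build GRCm38 without saying which made these counts. The counting tool and whether strand was used are not given in the sources used here, so overlapping and antisense genes and near copies may share reads. FPKM values, scaled for gene length and depth and deposited by the authors in 1 table per library, were used, for 6 libraries, only to obtain gene lengths. Every column was assigned to a sample by its name, and 0 rows were totals. Symbols from the reference gene table were found for 53274 of 53465 genes.

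Groups came from the labels. No batch is named there. The study calls the replicates biological and states, for its data as a whole, that experiments were repeated independently. Which mice or cultures gave which library is not said, and the p-values measure the spread between these libraries. Every pair of replicates differed by more than counting noise. Genes kept by edgeR's filterByExpr with a minimum count of 10 were tested in the 6 libraries with the quasi-likelihood test of edgeR 4.0.16 (R 4.3.3) after TMM normalization, with Benjamini-Hochberg adjustment over all 12671 genes and a threshold of 0.05, where the study's notes name DESeq2. SEs and 95% intervals come from the same fit. The interaction with IL-13 was fitted over 15 libraries in the same way. The tests were tried first on simulated counts with known changes. Alternatives were other scaling factors, DESeq2 1.42.0, limma 3.58.1 (voom with group weights), no filter, a minimum count of 50, 9 or 15 libraries in the fit, a replicate block, a test against a fold of 1.5, and leaving out each library.

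The 58 gene lists and their members were chosen with earlier results of these data known. Genes named were list members, the 20 largest fold changes in each direction among called genes that did not overlap and reached 10 CPM, the 10 largest differences in CPM, the 8 most abundant genes with at most 3 counts in each library of the other group, the 5 largest interactions, the 10 most variable genes with IL-4/IL-6 and the 5 most abundant genes that were not called and had an interval inside -0.58 to 0.58. Some genes these rules name are not reported here. Promoter sequences are those of RefSeq (GRCm38.p6). Total counts per library are given with the results. Floors for counts cover counting error only, whereas the intervals of log2 fold changes include the spread between libraries.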

Additional observations from a re-analysis of the deposited data

Results flagged for a closer look

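The effect of IL-6 differed between IL-4 and IL-13 in the interaction test over all 15 libraries for 449 genes in the direction of IL-4 and for 616 in the other. Among those with the largest differences on the log2 scale, it was more positive with IL-4 by 3.34 for 3300005D01Rik, 2.60 for Hcar2, 2.45 for Tgfbr3, 2.37 for Baiap2l1 and 2.09 for Cd163. The difference was -2.45 for Il18rap, -2.24 for Pdgfb, -2.14 for Nes and -2.03 for Nxpe1-ps. Genes lower with IL-4 and higher with IL-13 had differences of -1.03 for Clec4a3, -0.90 for C5ar1, -0.83 for Dhcr7, -0.82 for C1qa, -0.66 for Itgam, -0.62 for Junb and -0.59 for Tbxas1. The doses of IL-4 and IL-13 differed, so the cytokine and its dose cannot be told apart.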

How the results depend on the processing

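In no alternative was a called gene called in the opposite direction. Across 8 other normalizations, tools, filters and choices of libraries 1678 to 2885 genes were higher and 2108 to 2773 lower. Leaving out 1 library gave 1383 to 2846 and 1779 to 3036, and beyond a log2 fold change of 1.5 291 to 307 and 455 to 579; at least 732 of the 767 genes called beyond 1.5 remained called. Testing against a 1.5-fold change itself, a stricter hypothesis, left 573 and 966. With a minimum count of 50, which tests fewer genes, 305 were lower beyond 1.5, and list medians, over fewer members, became -0.52 for ERK genes, 0.76 for alternative activation, 1.95 for CC chemokines, 0.24 for IL-1 receptors, -0.40 for osteoclast genes, -0.048 for growth factors, 0.10 for eicosanoid genes, 0.25 for cell cycle inhibitors, 0.093 for the BCL2 family, -0.25 for monocyte, -0.24 for dendritic cell, -0.61 for basophil, mast cell and eosinophil and 1.22 for stromal markers. With upper-quartile factors the medians were -0.23 for scavenger receptors, -0.000383 for eicosanoid genes and 0.003443 for lysosomal genes, and with 15 libraries -0.14 for scavenger receptors. When 1 library was left out the median ranged over 0.35 to 0.64 (alternative activation), 0.69 to 1.04 (CC chemokines), -0.22 to -0.16 (scavenger receptors), -0.79 to -0.64 (integrins), 0.15 to 0.24 (cholesterol), -0.33 to -0.056 (glycolysis), -0.96 to -0.85 (DNA replication), -0.063 to 0.030 (BCL2 family), 0.21 to 0.30 (ER chaperones) and 0.29 to 1.15 (stromal markers). Of 911 list medians compared, 880 moved by less than the spread between replicates and 34 changed sign. Of the list members, 3 that were not called in the fit reported turned direction and passed the test without IL-4/IL-6 replicate 2: Cox4i1 at -0.20, Rps20 at -0.18 and Tpi1 at -0.20, against 0.24 and 0.26 for Cox4i1 and Rps20 without replicate 3 and 0.17 for Tpi1 without replicate 1. The cause of these shifts was not tested. The interaction with IL-13 gave 293 to 607 genes above 0, lowest without IL-4 replicate 2 and highest without IL-4/IL-6 replicate 2, and 489 to 798 below.

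Whether the replicate numbers pair the samples is not stated. Deviations of same-numbered libraries correlated at 0.0408, -0.0431 and -0.147, and not every library correlated best with its own number. These values cannot decide the question, because the deviations of the libraries within a group depend on each other. With the replicate number as a block 1621 genes were higher and 2077 lower, 3658 of the 4355 calls were kept, 52 list members lost their calls, and the interaction gave 377 and 555. Depth limits what can be said of rare transcripts: 0 counts in a library still allow a level of up to 3 counts, by counting error alone.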

Other observations

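Gene families were counted after the values had been seen, so the counts below describe these libraries and are no test; of all tested genes 15.7% were higher and 18.7% lower. Ms4a genes, tetraspan membrane proteins of immune cells, were higher in 6 of 7 cases (median log2 fold change 1.97). Ms4a6d was at 164, 165 and 169 CPM with IL-4 and 1284, 1311 and 1183 CPM with IL-4/IL-6, and Ms4a6c rose from 14.8 ± 1.53 to 58 ± 4.22 CPM and Ms4a7 from 65.5 ± 6.63 to 123 ± 22.4 CPM. The Cd300 receptors, which recognise lipids of dying cells and of membranes, went the other way, with 7 of 9 lower (median -1.57). Cd300a, an inhibitory member, was at 121, 114 and 114 CPM with IL-4 and 22.5, 25.4 and 24.7 CPM with IL-4/IL-6, Cd300c2 fell from 244 ± 13.5 to 62 ± 8.76 CPM and Cd300lb from 504 ± 8.10 to 244 ± 8.60 CPM, whereas Cd300lf rose from 12.4 ± 1.18 to 22.6 ± 4.08 CPM. Siglec genes, receptors for sialic acid, were lower in 4 of 5 cases, among them Siglec1 (87.0 ± 14 to 47.1 ± 16.1 CPM) and Siglecf (4.66 ± 0.820 to 0.797 ± 0.113 CPM). Intracellular serpins of the b clade were lower in 7 of 9 (median -1.07), for example Serpinb9, an inhibitor of granzyme B, from 17.8 ± 1.31 to 9.0 ± 0.846 CPM. Several of these families are clusters of near copies, between which reads may have been shared.

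Amino acid transporter genes of the Slc7 and Slc38 families were higher in 9 of 16 cases and lower in 1, Slc38a7 rising from 72.5 ± 2.66 to 136 ± 8.21 CPM and Slc38a6 from 15.6 ± 1.10 to 36.3 ± 2.89 CPM. Of 30 kinesin genes 15 were lower and 4 higher, the latter share near that of all tested genes. The mitotic motor Kif11 fell from 23.7 ± 2.72 to 6.93 ± 1.41 CPM, while Kif3a, a motor of transport along microtubules, was at 22.8, 19.3 and 19.3 CPM with IL-4 and 121, 117 and 121 CPM with IL-4/IL-6. Rab GTPases, which direct vesicle traffic, were higher in 20 and lower in 6 of 56, with Rab8b going from 355 ± 8.62 to 763 ± 13.2 CPM and Rab1a from 301 ± 12.6 to 534 ± 35.5 CPM. ABC transporters were lower in 15 and higher in 3 of 30, and interferon-inducible Ifi and Ifitm genes lower in 11 and higher in 1 of 22, Ifitm3 falling from 316 ± 14.2 to 177 ± 38.3 CPM and Ifi27l2a rising from 98.2 ± 1.67 to 190.3 ± 44.7 CPM.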
